A study of Oryctolagus cuniculus with 12 samples.

Results

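Bleb conjunctiva collected 3 hours after trabeculectomy (TL3h) was compared with control conjunctiva of left eyes in Japanese white rabbits. The comparison used 6 of the 12 RNA sequencing libraries, TL3h replicates 1 to 3 and control replicates 1 to 3, grouped as their labels give them. All genes of the table entered it, and the account below is given by gene family and by process, outside the genes that the study itself lists. The rabbits were female, and the right eye was operated on. In the operated eye, mitomycin C was applied under the conjunctival and scleral flaps, betamethasone was injected under the conjunctiva at the end, and an ointment with erythromycin and colistin was given. Whether the left eyes belonged to the rabbits of the TL3h group, and when they were collected, is not stated in the sources used here, and nothing in the labels ties a library to an animal. The p-values therefore measure the spread between these libraries, which may in part be technical. The surgery, mitomycin C, betamethasone, the ointment, and the aqueous humor that reaches the tissue differ between the groups together and cannot be told apart.

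Trabeculectomy opens a channel from the anterior chamber to the space under the conjunctiva, where aqueous humor collects in a bleb. Conjunctiva is a stratified epithelium with goblet cells over a loose stroma of fibroblasts, vessels, and resident leukocytes. In the first hours after a wound, cells are known to switch on immediate early genes, then their own feedback inhibitors, cytokines, and proteases, while neutrophils enter from the blood. Short genes can reach a full-length transcript within minutes, whereas genes that span a long stretch of the genome take longer to transcribe.

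The total estimated count was 35409584 to 38591425 in the control libraries and 31377346 to 34929841 in the TL3h libraries. Levels are given as CPM, counts scaled to library sizes adjusted by TMM, a scaling that assumes that most genes do not change. A gene with no count could still have up to 3, or 0.0712 to 0.124 CPM in these libraries, and this limit covers counting error only. Genes called higher took up 22.4% to 23.3% of the counts in the control libraries and 41.9% to 42.9% in the TL3h libraries, and the TMM factors were 1.03 to 1.13 in control and 0.768 to 0.783 in TL3h. Control replicate 3 stood apart from the others of its group: its log2 levels correlated with those of control replicates 1 and 2 at 0.938 and 0.954 across genes, against 0.978 between control replicates 1 and 2. It held more fibroblast, endothelial, neutrophil, and macrophage marker counts and fewer epithelial ones than the other control libraries. Where a count or call changed by more than 1.5 times or was lost when 1 library was left out, the value without that library is given beside it. Estimated counts that are fractions may stem from reads divided between genes or transcripts. Of the genes named below, TNFRSF12A, NOP56, DDX21, UTP20, RPL7L1, SRSF2, HSPA8, DNAJA1, LDHA, RARB, SQSTM1, KRT4, KRT18, PIGR, PLAT, LY96, TBC1D4, USP36, and ARHGEF39 had fractions in 91.7% to 100% of their values, so these levels are less certain.

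The defining markers of conjunctival epithelium were present in all 6 libraries, and their summed level (KRT4, KRT15, TP63, PAX6, and ELF3) was 8655, 6944, and 4262 CPM in control replicates 1 to 3 and 4156, 1780, and 3931 CPM in TL3h replicates 1 to 3. The fibroblast sum (PDGFRA, DCN, LUM, and COL1A2) was 6108, 15948, and 34393 CPM in control and 46912, 57674, and 46432 CPM in TL3h. The neutrophil sum (CSF3R, CXCR2, FPR1, CXCR1, and MPO) was 2.44, 4.17, and 51.9 CPM in control and 1385, 1594, and 594 CPM in TL3h. The groups did not overlap in any of these sums, although control replicate 3 and TL3h replicate 1 lay close together in the epithelial one. Of the single markers, 1 of 5 epithelial ones was called (lower), 0 of 4 fibroblast ones, and 4 of 4 neutrophil ones tested (higher). The pericyte sum overlapped, with 67.2 to 300.1 CPM in control and 203 to 362 CPM in TL3h. In bulk tissue, fewer cells of a type and less RNA per cell cannot be told apart. The part of these sums in the results below was not tested.

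At a q (Benjamini-Hochberg adjusted p of the edgeR quasi-likelihood test) of 0.05, 6733 of 14835 genes tested were called, 45.4% of them, with 3435 higher in TL3h (23.2%) and 3298 lower (22.2%). These shares are the background for every count below. Among these, 4270 genes changed 2-fold or more (28.8%), 2113 higher (14.2%) and 2157 lower (14.5%). In 8498 genes (57.3%), the 3 control and the 3 TL3h libraries did not overlap. Large changes leaned to the higher side: 368 genes were called with a fold change of at least 10 upward and 90 downward, and 53 upward and 3 downward with at least 100. Of the called genes, 3398 higher and 3275 lower ones are in none of the gene lists of the study. Of the called genes, 54 higher ones were at the limit of a count of 0 in control and 58 lower ones in TL3h, so their fitted fold changes depend on the prior count and are no bound. Without control replicate 3, 3351 genes were higher and 3496 lower.

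The direction of small changes rested on the scaling. When libraries were scaled by their size only, the median over all genes moved on the log2 scale from 0.02 to -0.47, a shift of -0.50, and 7563 genes were called (51%), 1889 higher (12.7%) and 5674 lower (38.2%). A group of genes with a median near 0 under TMM is therefore below 0 under library size only. The value under that scaling is given in the text below for the median of each list, family, pathway, and span group. It is not given for the medians of span groups by control level or at the later times. The plot of gene lists shows for each list the share of members called in each direction and both medians.

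**Figure D1:**
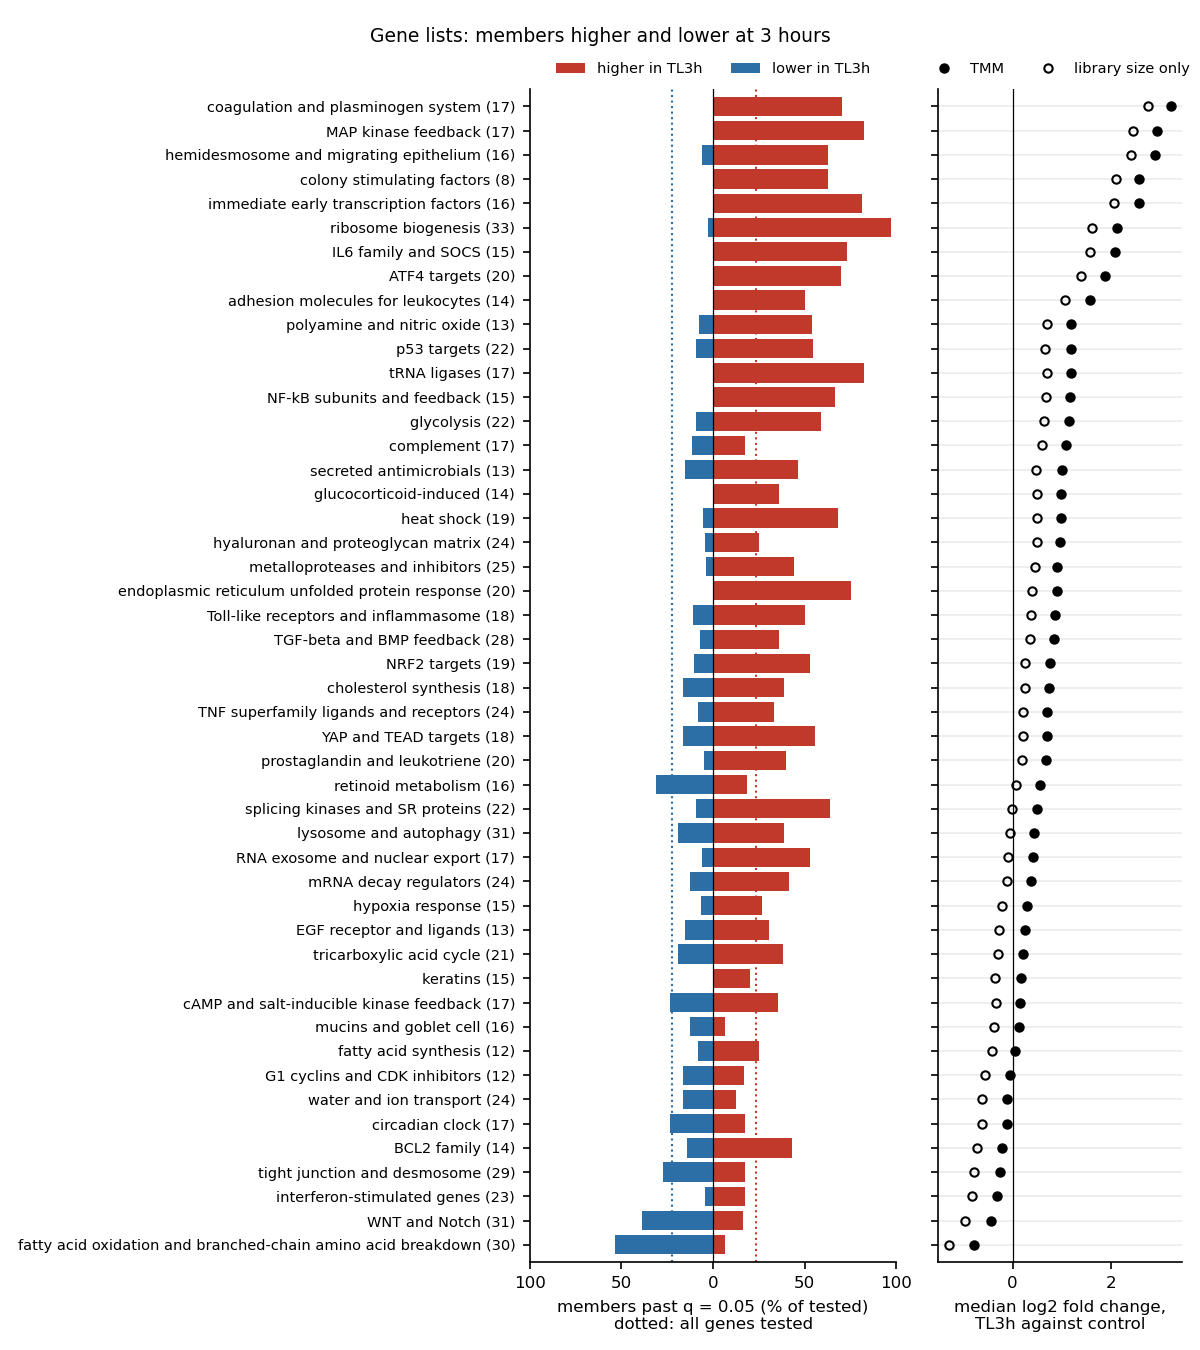
Left, percent of the tested members of each gene list that were higher (red) or lower (blue) in TL3h than in control at q = 0.05, with dotted lines at the shares over all genes tested (23.2% higher, 22.2% lower); right, median log2 fold change of each list with TMM (filled) and with library size only (open). The number of members tested is in brackets, and lists are ordered by their median, from coagulation and plasminogen at the top (3.20) to fatty acid oxidation and branched-chain amino acid breakdown at the bottom (-0.78).

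Immediate early transcription factors, which are induced without new protein synthesis, were mostly higher at 3 hours. Of this list, 13 of 16 tested members were higher and 0 lower, with a median log2 fold change of 2.56 (2.06 with library size only). EGR2, a zinc finger factor of the early growth response family, was at 1.40, 2.32, and 0.803 CPM in control and 60.3, 47.99, and 32.7 CPM in TL3h. Every TL3h library was more than 10 times above every control library (log2 fold change 4.96 ± 1.03 SE, q = 0.00323). FOSB, a partner of JUN in the AP-1 factor, was at 4.27, 3.999, and 2.56 CPM in control and 108, 129, and 58.2 CPM in TL3h (log2 fold change 4.76 ± 0.54 SE, q = 1.28e-04). NR4A3, an orphan nuclear receptor, rose from 3.54, 0.875, and 10.8 CPM to 102, 122, and 134 CPM (log2 fold change 4.56 ± 0.91 SE, q = 0.00263), and control replicate 3 was the highest of its control libraries. ATF3, which is induced by many stresses, had a log2 fold change of 2.25 ± 0.41 (SE, q = 0.00164). FOS itself was higher by 2.40 on the log2 scale (q = 0.0236), a call that was lost without TL3h replicate 1 (q = 0.0598), and EGR1, at 208, 207, and 28.7 CPM in control and 767, 515, and 630.4 CPM in TL3h, did not pass (q = 0.0581). For both genes, control replicate 3 was far below the other control libraries.

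Inhibitors of MAP kinase signalling, which the same pathway switches on to end its own activity, were mostly higher. Of this list, 14 of 17 tested members were higher and 0 lower (median 2.93, 2.43 with library size only), and all fits that left out 1 library gave the same counts. DUSP5, a phosphatase of nuclear ERK, was at 3.65, 3.17, and 5.32 CPM in control and 121, 129, and 105 CPM in TL3h. The groups were narrow and far apart (log2 fold change 4.87 ± 0.48 SE, q = 7.25e-05). DUSP2, a phosphatase best known from immune cells, was at 0.380, 0.5998, and 0.351 CPM in control and 22.9, 23.7, and 14.998 CPM in TL3h (log2 fold change 5.52 ± 0.63 SE, q = 1.31e-04), and DUSP6, which acts on ERK in the cytoplasm, had a log2 fold change of 4.44 ± 0.60 (q = 3.15e-04). SPRY4, a Sprouty inhibitor of receptor tyrosine kinase signalling, rose from 0.332, 1.32, and 7.40 CPM to 66.1, 101, and 69.0 CPM (log2 fold change 4.71 ± 1.01 SE, q = 0.00381). SPRED3 (4.96 ± 0.79) and the EGF receptor inhibitor ERRFI1 (4.30 ± 0.24) rose as well. Over the DUSP symbol family as a whole, 10 of 19 tested members were higher and 2 lower (median 0.60, 0.11 with library size only, where 7 were higher and 3 lower), the lower ones with TMM being DUSP19 (-1.88) and DUSP22 (-0.76).

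Of the list of NF-kB subunits and inhibitors, 10 of 15 tested members were higher and 0 lower (median 1.17, 0.67 with library size only, where 7 were higher). TNFAIP3, the deubiquitinase A20 that ends NF-kB signalling, was at 17.4, 20.7, and 45.3 CPM in control and 207, 217, and 150.3 CPM in TL3h (log2 fold change 2.79 ± 0.52 SE, q = 0.00180). NFKB2, which encodes the p100 precursor, rose from 36.0, 33.9, and 51.6 CPM to 298, 244, and 196 CPM (log2 fold change 2.602 ± 0.36 SE, q = 3.58e-04), and NFKBIA, the inhibitor IkB-alpha, had a log2 fold change of 1.96 ± 0.44 (q = 0.00468). TNIP3, a binding partner of A20, rose from 0.142, 0.300, and 0.677 CPM to 10.9, 4.40, and 4.76 CPM (log2 fold change 4.15 ± 1.12 SE, q = 0.0123). NFKBIZ, an atypical member of the family, was higher by 0.86 with TMM (q = 0.0147) and did not pass with library size only (q = 0.294). Messenger RNA decay regulators were divided: 10 of 24 tested members were higher and 3 lower, and the median of 0.38 turned to -0.12 with library size only, where 4 were higher and 6 lower. The endonuclease ZC3H12A (Regnase-1), which cuts cytokine transcripts, was at 39.7, 39.1, and 59.1 CPM in control and 252, 172, and 156 CPM in TL3h (log2 fold change 2.07 ± 0.31 SE, q = 5.16e-04). ZFP36, which binds AU-rich elements, was higher by 2.16 (q = 0.0159), a call lost without TL3h replicate 1 (q = 0.0569). Both subunits of the PAN2-PAN3 deadenylase, by contrast, were lower (-0.55 ± 0.16 and -0.62 ± 0.15), PAN2 without a call when control replicate 1 was left out (q = 0.0507). 

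Genes of cAMP signalling moved in both directions, with 6 of 17 tested members higher and 4 lower (median 0.14, -0.33 with library size only, where 4 were higher and 8 lower). CREM, whose short form ICER represses cAMP targets, was at 1.76, 1.55, and 4.14 CPM in control and 33.8, 42.6, and 25.7 CPM in TL3h (log2 fold change 3.78 ± 0.41 SE, q = 9.98e-05). PDE4B, the phosphodiesterase that breaks down cAMP, rose from 3.84, 7.42, and 8.50 CPM to 83.6, 75.5, and 30.9 CPM (log2 fold change 3.26 ± 0.48 SE, q = 4.71e-04), although its gene spans 554 kb (chr13:99884073-100438274 on OryCun2.0). The adenosine receptor ADORA2B, which raises cAMP, was also higher (2.95 ± 0.47). Adenylate cyclases, which make cAMP, were lower where called: ADCY9 fell from 29.7, 25.8, and 29.5 CPM to 6.15, 6.14, and 7.76 CPM (log2 fold change -2.08 ± 0.19 SE, q = 5.53e-05) and ADCY6 had a log2 fold change of -1.25 ± 0.18. SIK1, a salt-inducible kinase, did not pass the filter on low counts, with at most 8 counts in a control library and 2 in a TL3h library.

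Of the circadian clock list, 3 of 17 tested members were higher and 4 lower (median -0.11, -0.61 with library size only, where 3 were higher and 7 lower). The repressor NFIL3 was at 1.49, 2.07, and 6.82 CPM in control and 86.5, 115, and 58.0 CPM in TL3h (log2 fold change 4.64 ± 0.81 SE, q = 0.00121). HLF and TEF, PAR bZIP factors that bind the same sites as NFIL3, were lower: HLF fell from 93.7, 98.5, and 153 CPM to 27.4, 14.6, and 30.3 CPM (log2 fold change -2.26 ± 0.42 SE, q = 0.00187) and TEF had a log2 fold change of -1.65 ± 0.42 (q = 0.00904). CRY1 (1.48 ± 0.31) and BHLHE40 (1.55 ± 0.31) were higher, while the core gene ARNTL (-0.41 ± 0.38, q = 0.409), NR1D1 (-0.76 ± 0.55, q = 0.291), and PER1 (0.79 ± 0.50, q = 0.226) did not pass. The hour of day at which tissues were taken is not given in the sources used here. The higher clock count was 5 without control replicate 3.

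Glucocorticoid-induced genes depended on 1 control library. With all libraries, 5 of 14 tested members were higher and 0 lower (median 0.98, 0.50 with library size only). The higher glucocorticoid-induced count was 10 without control replicate 3. FKBP5, a chaperone partner of the glucocorticoid receptor and a standard marker of its activity, was at 7.26, 8.82, and 454 CPM in control and 185, 231, and 296 CPM in TL3h. Control replicate 3 lay above all TL3h libraries, and the other control libraries lay far below them, so the gene did not pass with all libraries (log2 fold change 0.60 ± 1.20 SE, q = 0.719). The lowest q over the alternatives was 1.34e-04. TSC22D3 (GILZ) was likewise highest in control replicate 3, at 247, 171, and 428 CPM in control and 282, 328, and 196 CPM in TL3h (log2 fold change -0.07 ± 0.52 SE, q = 0.925). SGK1, the serum- and glucocorticoid-regulated kinase, did not overlap between the groups, at 35.0, 28.1, and 83.0 CPM in control and 578, 417, and 376 CPM in TL3h (log2 fold change 3.23 ± 0.49 SE, q = 6.12e-04).

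Of the list of IL6 family cytokines, receptors, and SOCS inhibitors, which leaves out IL6 itself as a gene of the study's own lists, 11 of 15 tested members were higher and 0 lower (median 2.06, 1.57 with library size only, again with 11 higher). OSM, oncostatin M, was at 0.166, 0.09996, and 0.527 CPM in control and 45.7, 51.2, and 30.3 CPM in TL3h (log2 fold change 7.31 ± 1.56 SE, q = 0.00377). LIF, leukemia inhibitory factor, was already expressed in control conjunctiva and was at 24.3, 30.1, and 21.9 CPM in control and 359, 144, and 371 CPM in TL3h (log2 fold change 3.52 ± 0.50 SE, q = 4.06e-04). SOCS3, the inhibitor that these receptors induce, was at 3.11, 4.199, and 23.1 CPM in control and 574, 664, and 325 CPM in TL3h (log2 fold change 5.68 ± 0.92 SE, q = 8.32e-04). Control replicate 3 was the highest control library for SOCS3 and lay below all TL3h libraries.

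Of 8 colony stimulating factor and receptor genes, 5 were higher and 0 lower (median 2.57, 2.10 with library size only). CSF3, granulocyte colony stimulating factor, was at 1.16, 1.07, and 7.02 CPM in control and 170.3, 57.6, and 173 CPM in TL3h (log2 fold change 5.43 ± 1.05 SE, q = 0.00222). Its receptor CSF3R, carried by neutrophils, was at 1.09, 2.05, and 18.9 CPM in control and 701, 606, and 228 CPM in TL3h (log2 fold change 6.12 ± 1.37 SE, q = 0.00484), and CSF2RB, the shared beta chain, had a log2 fold change of 4.54 ± 1.04. CSF2 was at 0 or near it in all 6 libraries, below the limit that a count of 0 allows.

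In the TNF superfamily, 8 of 24 tested members were higher and 2 lower (median 0.70, 0.20 with library size only, where 7 were higher and 5 lower). TNFRSF12A (Fn14), the receptor of TWEAK, was at 2.42, 2.70, and 9.10 CPM in control and 425, 438, and 357 CPM in TL3h. The TL3h libraries were close to each other, and control replicate 3 was above the other control libraries (log2 fold change 6.42 ± 1.02 SE, q = 7.23e-04). TNFSF18, the GITR ligand, rose from 0.0237, 0.0250, and 0.326 CPM to 7.26, 11.99, and 7.10 CPM (log2 fold change 6.10 ± 1.28 SE, q = 0.00345), and the death receptor FAS had a log2 fold change of 3.97 ± 0.62 (q = 6.94e-04). TNFSF10 (TRAIL) and TNFRSF11A (RANK) were lower, TNFSF10 falling from 250.4, 245, and 146 CPM to 50.04, 62.1, and 25.2 CPM (log2 fold change -2.22 ± 0.43 SE, q = 0.00232). TNF itself was at 0.214, 0.800, and 0.176 CPM in control and 4.27, 2.74, and 3.48 CPM in TL3h and did not pass (q = 0.0746, 0.00885 at the lowest over the alternatives).

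Among the EGF receptors and their ligands, 4 of 13 tested members were higher and 2 lower (median 0.24, -0.28 with library size only, where 3 were higher and 3 lower). The ligands AREG and HBEGF rose and the receptors ERBB2 and ERBB3 fell. AREG, amphiregulin, was at 0.190, 0.3499, and 0.376 CPM in control and 80.2, 17.9, and 24.4 CPM in TL3h (log2 fold change 7.05 ± 1.33 SE, q = 0.00191). HBEGF, heparin-binding EGF-like growth factor, was at 3.20, 3.05, and 4.51 CPM in control and 272, 101, and 175 CPM in TL3h (log2 fold change 5.67 ± 1.06 SE, q = 0.00188). ERBB3 was at 778, 619, and 338 CPM in control and 173, 69.0, and 171 CPM in TL3h (log2 fold change -2.07 ± 0.49 SE, q = 0.00610), and ERBB2 fell from 360.4, 302, and 174 CPM to 68.5, 40.0, and 73.8 CPM (log2 fold change -2.20 ± 0.35 SE, q = 7.01e-04). EGFR, the receptor of both ligands, did not pass. ERBB2 and ERBB3 are epithelial genes, and the epithelial marker sum was lower in the same libraries.

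Of the TGF-beta and BMP list, 10 of 28 tested members were higher and 2 lower (median 0.84, 0.35 with library size only, where 7 were higher and 5 lower). INHBA and INHBB, which encode the activin subunits, rose, INHBA from 3.06, 4.02, and 5.67 CPM to 74.1, 187, and 109 CPM (log2 fold change 4.86 ± 1.08 SE, q = 0.00467) and INHBB by 3.31 ± 0.76. ID1, a direct target of BMP signalling, was at 14.6, 16.9, and 12.99 CPM in control and 101, 72.0, and 102 CPM in TL3h (log2 fold change 2.63 ± 0.31 SE, q = 1.61e-04). The inhibitor SMAD7 was higher by 1.86 (q = 0.0337), a call lost without TL3h replicate 3 (q = 0.104). BMP6 fell from 12.8, 20.3, and 8.98 CPM to 3.65, 2.24, and 2.93 CPM (log2 fold change -2.25 ± 0.42 SE, q = 0.00168). The TGF-beta ligands and receptors themselves did not pass. The lower TGF-beta count was 1 without TL3d replicate 2, TL3h replicate 1 or control replicate 2.

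WNT and Notch genes leaned to the lower side, with 5 of 31 tested members higher and 12 lower (median -0.44, -0.96 with library size only, where 3 were higher and 13 lower). The higher WNT count was 2 without TL3h replicate 2 or control replicate 2. The lower WNT count was 5 without TL3h replicate 2. TCF7L1, a repressor of WNT targets in epithelium, fell from 25.6, 25.1, and 19.4 CPM to 5.03, 3.57, and 7.02 CPM (log2 fold change -2.16 ± 0.28 SE, q = 2.33e-04), and NOTCH3 fell from 323, 272, and 146 CPM to 72.1, 39.8, and 53.1 CPM (log2 fold change -2.17 ± 0.35 SE, q = 7.49e-04). DLL4, the Notch ligand of endothelium, had a log2 fold change of 2.50 ± 0.78, and the receptor gene FZD7 one of 1.92 ± 0.57, calls lost without control replicate 2 (q = 0.0856) and without TL3h replicate 2 (q = 0.0708). AXIN2 (-0.33 ± 0.52) and HES1 (-0.42 ± 0.39), standard targets of WNT and Notch signalling, did not pass.

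Of the YAP and TEAD list, 10 of 18 tested members were higher and 3 lower (median 0.70, 0.21 with library size only, where 5 were higher and 6 lower). The higher YAP count was 3 without TL3h replicate 3. The lower YAP count was 5 without TL3h replicate 3. CYR61 and CTGF, secreted matrix proteins and the classic targets, were at 599, 433, and 729.5 CPM and 1988, 1885, and 2776 CPM in TL3h, against 5.29, 6.20, and 103 CPM and 795, 609, and 417 CPM in control. CYR61 (log2 fold change 3.94 ± 1.28 SE, q = 0.0284) lost the threshold without control replicate 2 (q = 0.0780), and CTGF (log2 fold change 1.87 ± 0.52 SE, q = 0.0145) without control replicate 3 (q = 0.0536). TEAD4 rose from 0.973, 1.499, and 4.16 CPM to 12.9, 34.5, and 23.9 CPM (log2 fold change 3.42 ± 0.71 SE, q = 0.00335) and AMOTL1, a junction protein that binds YAP, fell from 144, 150.2, and 62.9 CPM to 20.3, 27.2, and 42.4 CPM (log2 fold change -1.99 ± 0.34 SE, q = 0.00120).

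**Figure D2:**
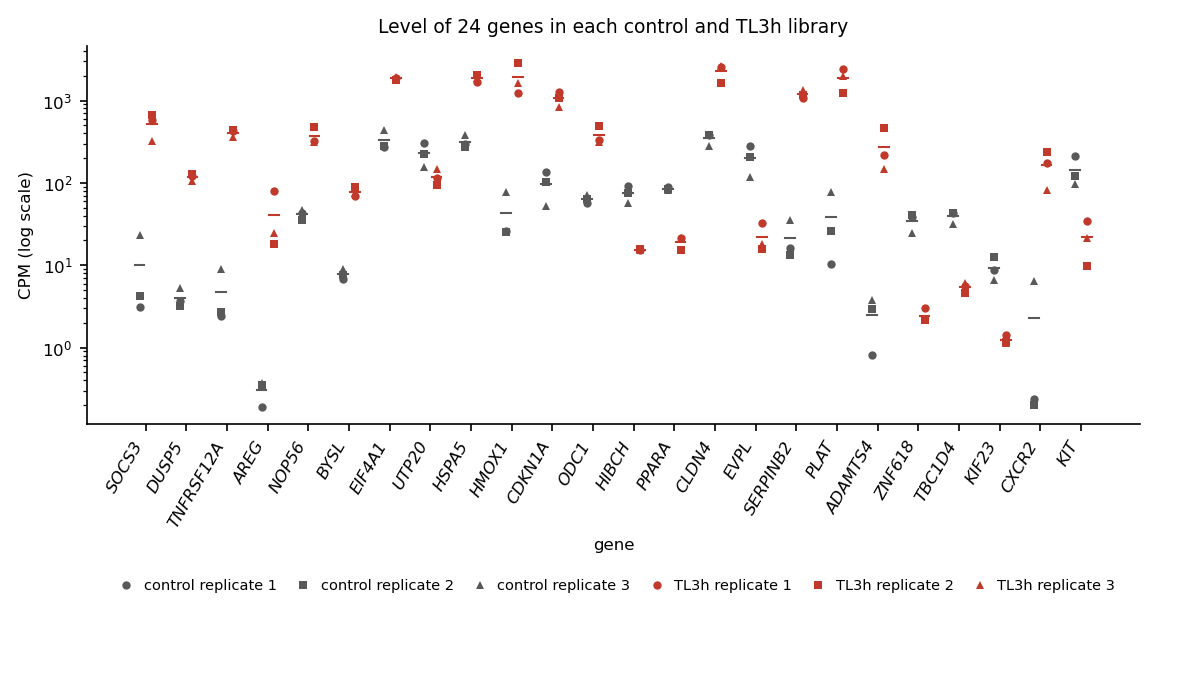
Level in CPM (log axis) of 24 genes in each control library (grey) and each TL3h library (red), with the replicate given by the marker shape and the group mean by a short line. The groups do not overlap for any of these genes, which were picked from those named in the text. Lack of overlap was itself a condition for naming many of them, and the groups did not overlap in 57.3% of all genes tested. In CXCR2 and SOCS3, control replicate 3 lies above the other control libraries and below all TL3h libraries.

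Genes of ribosome biogenesis, which process ribosomal RNA and assemble ribosomes in the nucleolus, mostly rose. Of 33 members tested in a list chosen by hand, 32 were higher and 1 was lower, with a median log2 fold change of 2.11 (1.61 with library size only, with the same counts), and each fit that left out 1 library gave 32 higher. In the wider KEGG pathway of that name, as annotated in the deposited table, 57 of 75 tested genes were higher and 3 lower (median 1.26, 0.76 with library size only). The summed level of the list was 1944 to 2109 CPM in control and 6800 to 7490 CPM in TL3h. NOP56, a core protein of the box C/D snoRNP (chr4:9681143-9687030), was at 43.4, 35.2, and 47.1 CPM in control and 323, 475, and 316 CPM in TL3h (log2 fold change 3.15 ± 0.21 SE, q = 2.45e-05). BYSL, bystin, which acts in the small subunit (chr12:31517336-31532608), was at 6.86, 7.52, and 9.10 CPM in control and 69.3, 89.3, and 75.7 CPM in TL3h (log2 fold change 3.32 ± 0.32 SE, q = 6.24e-05). RRS1, an assembly factor of the large subunit, was at 14.5, 12.1, and 18.4 CPM in control and 85.7, 115, and 92.7 CPM in TL3h (log2 fold change 2.70 ± 0.21 SE, q = 3.14e-05). In each of these genes, every TL3h library was more than 4 times above every control library. NOP58 (2.88 ± 0.18), the helicase DDX21 (2.69 ± 0.25), NOP16 (2.27 ± 0.24), and the RNA polymerase I subunit POLR1B (1.86 ± 0.14) rose with them. The exception was UTP20, a very large protein of the small subunit processome (chr4:80625445-80729435), at 303, 226, and 157 CPM in control and 115, 94.2, and 148 CPM in TL3h (log2 fold change -0.95 ± 0.27 SE, q = 0.0161). The call was lost without control replicate 1 (q = 0.0701) and without TL3h replicate 2. UTP20 spans 104 kb, and the median span of the list was 14.0 kb.

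In the EIF family, 29 of 48 tested members were higher and 3 lower (median 0.66, 0.17 with library size only, where 21 were higher and 10 lower). EIF4A1, the helicase that opens the 5' end of transcripts, was at 274, 283, and 442 CPM in control and 1876, 1763, and 1923 CPM in TL3h (log2 fold change 2.48 ± 0.24 SE, q = 6.68e-05), and EIF3J was at 48.7, 47.8, and 65.2 CPM in control and 266, 323, and 309 CPM in TL3h (log2 fold change 2.47 ± 0.22 SE, q = 4.64e-05). The lower members were the kinases EIF2AK1 (-0.62 ± 0.14) and EIF2AK4 (-0.67 ± 0.24, lost without control replicate 3, q = 0.107), which phosphorylate eIF2-alpha, and EIF2D (-0.59 ± 0.12). DEAD-box helicases were higher in 20 and lower in 1 of 30 (median 0.85, 0.35 with library size only, where 14 were higher and 6 lower), and RNA polymerase subunits in 20 and 2 of 26 (median 0.70, 0.19 with library size only, where 9 were higher and 3 lower). Of these subunits, POLR3B fell from 18.4, 18.9, and 11.96 CPM to 6.84, 6.60, and 5.19 CPM (log2 fold change -1.40 ± 0.23 SE, q = 9.14e-04). Its gene spans 127 kb. The lower DDX count was 0 without TL3h replicate 1, TL3h replicate 2, control replicate 1 or control replicate 2 and 2 without TL3h replicate 3. The lower POLR count was 1 without any 1 of most libraries.

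Ribosomal protein genes were mostly without a call. Of 66 RPL and RPS genes tested, 10 were higher and 0 lower, below the 23.2% of all genes that were higher, and the median of 0.21 turned to -0.30 with library size only, where 1 was higher and 1 lower. The higher RPL and RPS count was 17 without TL14d replicate 1. RPL7L1, an RPL7-like protein that carries the same prefix, was at 78.9, 82.7, and 87.5 CPM in control and 192, 189.9, and 215 CPM in TL3h (log2 fold change 1.26 ± 0.11 SE, q = 3.89e-05). Mitochondrial ribosomal proteins were higher in 37 and lower in 3 of 70 (median 0.40), but in 10 and 17 with library size only (median -0.10), so their direction rested on the scaling. MRPS6 rose from 5.29, 4.62, and 11.7 CPM to 19.1, 24.8, and 29.5 CPM (log2 fold change 1.77 ± 0.35 SE, q = 0.00240) and MRPL4 fell from 7.12, 6.80, and 5.54 CPM to 3.34, 2.20, and 1.83 CPM (log2 fold change -1.40 ± 0.29 SE, q = 0.00337), and both kept their direction under library size only.

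Proteasome subunits were higher in 29 and lower in 1 of 35 (median 0.74). The changes were small, and with library size only 9 were higher and 5 lower (median 0.24). The lower PSM count was 0 without TL3h replicate 2, TL3h replicate 3, control replicate 1 or control replicate 2 and 3 without control replicate 3. PSMD11, a lid subunit, was at 84.4, 83.6, and 87.0 CPM in control and 218, 229, and 227 CPM in TL3h (log2 fold change 1.40 ± 0.18 SE, q = 2.14e-04). Of the ubiquitin-conjugating enzymes, 19 of 31 tested members were higher and 2 lower (median 0.54, 0.03 with library size only, where 13 were higher and 3 lower). UBE2S (2.16 ± 0.30) and UBE2C (-1.53 ± 0.37), which act together with the anaphase-promoting complex, moved in opposite directions, UBE2S from 4.51, 5.35, and 4.21 CPM to 30.1, 21.4, and 11.6 CPM and UBE2C from 5.89, 8.12, and 5.74 CPM to 3.46, 1.08, and 2.30 CPM. UBE2T, which serves the Fanconi anemia pathway of crosslink repair, rose from 1.40, 1.75, and 1.13 CPM to 18.9, 7.59, and 10.6 CPM (log2 fold change 3.11 ± 0.35 SE, q = 1.19e-04).

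Of the SR splicing proteins and their kinases, 14 of 22 tested members were higher and 2 lower (median 0.50, 0.00 with library size only, where 5 were higher and 4 lower). The lower splicing count was 0 without control replicate 1. SRSF2 was at 81.3, 82.0, and 78.7 CPM in control and 195, 193.9, and 158 CPM in TL3h (log2 fold change 1.18 ± 0.13 SE, q = 9.98e-05), and of 11 SRSF symbols 8 were higher and 0 lower, also without any 1 library, but 4 higher and 2 lower with library size only. CLK1, a kinase of these proteins, fell from 205, 174, and 177 CPM to 113, 132, and 113 CPM (log2 fold change -0.63 ± 0.18 SE, q = 0.0149), a call lost without control replicate 1 (q = 0.0567). Heterogeneous nuclear ribonucleoproteins were higher in 11 and lower in 3 of 19 (median 0.37, -0.14 with library size only, where 5 were higher and 5 lower). The higher HNRNP count was 7 without TL3h replicate 1, TL3h replicate 3, control replicate 2 or control replicate 3. The lower HNRNP count was 0 without control replicate 2. HNRNPAB was at 224, 233, and 253 CPM in control and 587, 582, and 604 CPM in TL3h (log2 fold change 1.32 ± 0.14 SE, q = 8.12e-05). Nucleoporins were higher in 11 and lower in 3 of 21 (median 0.42, -0.08 with library size only, where 6 were higher and 4 lower), with NUP50 at 35.6, 36.2, and 38.1 CPM in control and 104, 103, and 104 CPM in TL3h (log2 fold change 1.499 ± 0.17 SE, q = 1.19e-04). The lower NUP count was 1 without control replicate 2. Of the exosome and export list, 9 of 17 tested members were higher and 1 lower (median 0.41, -0.09 with library size only, where 5 were higher and 2 lower). The 2 exportins with a call moved apart, XPO5, the exporter of precursor microRNAs, from 30.7, 30.9, and 36.8 CPM to 96.5, 137, and 152 CPM (log2 fold change 1.97 ± 0.21 SE, q = 9.85e-05) and XPO1, the general exporter of proteins, from 205, 230.1, and 135 CPM to 73.0, 93.9, and 93.8 CPM (log2 fold change -1.13 ± 0.19 SE, q = 9.56e-04). Mediator subunits were higher in 12 and lower in 5 of 27 (median 0.34, -0.15 with library size only, where 5 were higher and 9 lower), and MED14 rose from 38.1, 35.2, and 36.1 CPM to 137, 112, and 143 CPM (log2 fold change 1.84 ± 0.21 SE, q = 1.24e-04). The lower MED count was 2 without TL3h replicate 3, control replicate 1 or control replicate 2. 

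Targets of ATF4, the factor of the integrated stress response, mostly rose. Of this list, 14 of 20 tested members were higher and 0 lower (median 1.88, 1.38 with library size only). CHAC1, which degrades glutathione, was at 0, 0.09996, and 0.150 CPM in control and 7.15, 8.30, and 9.15 CPM in TL3h (log2 fold change 6.57 ± 1.01 SE, q = 6.13e-04). MTHFD2, a mitochondrial enzyme of folate metabolism, was at 3.73, 5.50, and 21.9 CPM in control and 281, 322, and 240.4 CPM in TL3h (log2 fold change 4.76 ± 0.83 SE, q = 0.00126). SLC7A5, the large neutral amino acid transporter, was at 28.3, 22.3, and 37.6 CPM in control and 404, 609, and 405 CPM in TL3h (log2 fold change 4.01 ± 0.49 SE, q = 1.98e-04). The pseudokinase TRIB3 (4.03 ± 0.45) and the transporters SLC7A1 (2.77 ± 0.33) and SLC7A11 (2.46 ± 0.62) rose too, and SLC7A1, SLC7A5, and SLC7A11 were the 3 members called among 10 of that family. The higher SLC7 count was 6 without control replicate 3. ASNS, asparagine synthetase and a standard ATF4 target, did not follow, at 29.8, 29.6, and 15.3 CPM in control and 18.9, 16.8, and 19.3 CPM in TL3h (log2 fold change -0.44 ± 0.29 SE, q = 0.234). A list of cytoplasmic aminoacyl-tRNA ligases, without the mitochondrial ones, was higher in 14 and lower in 0 of 17 (median 1.18, 0.69 with library size only, where 11 were higher and 1 lower), with GARS at 26.9, 37.9, and 66.6 CPM in control and 163, 205, and 211 CPM in TL3h (log2 fold change 2.14 ± 0.48 SE, q = 0.00487). The KEGG pathway of aminoacyl-tRNA biosynthesis held 7 higher and 8 lower of 27 tested genes (median -0.21, -0.72 with library size only), so the count of the list does not stand for all such ligases.

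Of the unfolded protein response list, 15 of 20 tested members were higher and 0 lower (median 0.89, 0.40 with library size only, where 8 were higher and 2 lower). The higher unfolded protein count was 8 without TL3h replicate 3 or control replicate 2. HSPA5 (BiP), the main chaperone of the endoplasmic reticulum, was at 293, 276, and 385 CPM in control and 1682, 2059, and 1902 CPM in TL3h (log2 fold change 2.57 ± 0.31 SE, q = 1.78e-04). XBP1, a factor of this response, rose from 122, 139, and 142 CPM to 918, 284, and 1348 CPM (log2 fold change 2.66 ± 0.46 SE, q = 0.00124), with TL3h replicate 2 below the other TL3h libraries. Of the heat shock list, 13 of 19 tested members were higher and 1 lower (median 0.98, 0.50 with library size only, where 8 were higher and 3 lower). HSPD1, the mitochondrial chaperonin, was at 109, 112, and 137 CPM in control and 546, 680.2, and 599.6 CPM in TL3h (log2 fold change 2.35 ± 0.19 SE, q = 3.14e-05), and HSPA8 (2.04 ± 0.26), DNAJA1 (1.96 ± 0.33), and HSPH1 (1.54 ± 0.22) rose in the cytosol. The small heat shock protein HSPB1 had a log2 fold change of -0.96 ± 0.34, a call lost without control replicate 1 (q = 0.130). The lower heat shock count was 0 without any 1 of most libraries.

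Of the NRF2 targets, which answer oxidative stress, 10 of 19 tested members were higher and 2 lower (median 0.75, 0.24 with library size only, where 8 were higher and 5 lower). HMOX1, heme oxygenase 1, was at 26.2, 25.4, and 77.8 CPM in control and 1236, 2877, and 1617 CPM in TL3h (log2 fold change 5.47 ± 0.61 SE, q = 1.23e-04). TXNRD1, thioredoxin reductase, was at 60.6, 54.8, and 91.4 CPM in control and 586, 386, and 464 CPM in TL3h (log2 fold change 2.79 ± 0.45 SE, q = 8.12e-04), and SRXN1, sulfiredoxin, rose from 8.23, 6.80, and 8.30 CPM to 27.4, 43.2, and 34.7 CPM (log2 fold change 2.17 ± 0.22 SE, q = 8.19e-05). GSR, glutathione reductase, fell from 104, 112, and 76.9 CPM to 30.7, 21.4, and 27.7 CPM (log2 fold change -1.88 ± 0.21 SE, q = 1.26e-04), and transketolase TKT had a log2 fold change of -0.88 ± 0.26, a call lost without control replicate 1 (q = 0.0814). The lower NRF2 count was 1 without TL3h replicate 2 or control replicate 1 and 4 without TL14d replicate 1. NQO1, the most used marker of NRF2 activity, did not pass.

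Of a list of p53 targets, p53 being the factor that responds to DNA damage such as crosslinks, the tested members were higher in 12 and lower in 2 of 22 (median 1.18, 0.67 with library size only, where 8 were higher and 5 lower). CDKN1A (p21), which halts the cell cycle, was at 135, 104, and 52.6 CPM in control and 1273, 1079.6, and 838 CPM in TL3h (log2 fold change 3.45 ± 0.62 SE, q = 0.00145). MDM2, the ligase that degrades p53, was at 194.4, 170.5, and 157 CPM in control and 562, 580.2, and 490.2 CPM in TL3h (log2 fold change 1.65 ± 0.40 SE, q = 0.00784), and the stress kinase PLK3 rose from 1.87, 2.72, and 4.89 CPM to 119.6, 129, and 97.3 CPM (log2 fold change 5.18 ± 0.74 SE, q = 4.01e-04). The KEGG p53 signaling pathway was near the background, with 19 higher and 12 lower of 67 (median 0.13, -0.38 with library size only). The repair gene DDB2 (-1.31 ± 0.29) and the receptor gene EDA2R (-1.38 ± 0.32) fell. In the BCL2 family of cell death regulators, 6 of 14 tested members were higher and 2 lower (median -0.22, -0.72 with library size only, where 3 were higher and 6 lower). The protective members BCL2A1, at 6.64, 8.82, and 15.3 CPM in control and 271, 329, and 143 CPM in TL3h (log2 fold change 4.59 ± 0.62 SE, q = 3.10e-04), and MCL1, at 363, 351, and 459 CPM in control and 1298, 1238, and 1099 CPM in TL3h (log2 fold change 1.63 ± 0.19 SE, q = 1.54e-04), rose, as did the death-promoting BCL2L11 (2.03 ± 0.18), while the death-promoting BAD fell from 9.90, 9.25, and 9.08 CPM to 5.38, 2.28, and 3.22 CPM (log2 fold change -1.37 ± 0.32 SE, q = 0.00643). BCL2A1 is also expressed by neutrophils, whose marker sum was higher in the same libraries. Of the G1 cyclins and inhibitors, 2 of 12 tested members were higher and 2 lower (median -0.05, -0.55 with library size only), with CDK2 at 1.51 ± 0.25 and CDKN2C falling from 17.6, 20.3, and 12.6 CPM to 2.73, 2.70, and 1.98 CPM (log2 fold change -2.77 ± 0.44 SE, q = 7.05e-04). The lower BCL2 count was 1 without TL3h replicate 2, TL3h replicate 3, control replicate 1 or control replicate 2. The lower G1 count was 1 without TL3h replicate 1, TL3h replicate 3, control replicate 2 or control replicate 3.

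Of the glycolysis list, 13 of 22 tested members were higher and 2 lower (median 1.14, 0.64 with library size only, where 10 were higher and 3 lower). PFKFB3, the enzyme that makes the activator of phosphofructokinase, was at 79.9, 78.6, and 123 CPM in control and 616, 515, and 467 CPM in TL3h (log2 fold change 2.50 ± 0.33 SE, q = 2.79e-04). Hexokinase HK2 was at 129, 83.0, and 121 CPM in control and 322, 271, and 429.9 CPM in TL3h (log2 fold change 1.62 ± 0.25 SE, q = 7.11e-04), and the lactate and pyruvate carrier SLC16A1 rose from 7.24, 9.85, and 59.1 CPM to 188, 370.3, and 321 CPM (log2 fold change 3.53 ± 0.74 SE, q = 0.00348). Lactate dehydrogenase LDHA was higher by 1.23 (q = 0.0347), a call lost without TL3h replicate 1 (q = 0.180). The lower glycolysis count was 0 without TL3h replicate 3, control replicate 1 or control replicate 2. The KEGG pathway of glycolysis and gluconeogenesis was near the background, with 15 higher and 11 lower of 54 (median -0.10, -0.60 with library size only). Of the hypoxia list, 4 of 15 tested members were higher and 1 lower (median 0.30, -0.21 with library size only, where 4 were higher and 5 lower), and of the KEGG HIF-1 signaling pathway 40 of 98 were higher and 16 lower (median 0.28, -0.22 with library size only). Among single hypoxia genes, the vasodilator peptide ADM was at 5.46, 6.52, and 39.8 CPM in control and 496, 438, and 432 CPM in TL3h (log2 fold change 4.72 ± 0.73 SE, q = 6.43e-04), HIF1A at 107, 108, and 169.8 CPM in control and 549, 889.9, and 613 CPM in TL3h (log2 fold change 2.41 ± 0.41 SE, q = 0.00105), and VEGFA at 59.7, 87.1, and 82.2 CPM in control and 284, 275, and 221 CPM in TL3h (log2 fold change 1.77 ± 0.37 SE, q = 0.00336). EGLN3 did not pass (q = 0.0739), and the glucose transporter SLC2A1 did not either. Of 8 transporters of the SLC2 family tested, 0 were higher and 2 lower, SLC2A12 (-2.50 ± 0.29) and SLC2A13 (-1.55 ± 0.27). The lower hypoxia count was 2 without TL14d replicate 1 or TL3h replicate 1.

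In the list of genes that burn fatty acids and branched-chain amino acids in mitochondria, more members fell than rose, with 2 of 30 tested members higher and 16 lower. The median log2 fold change was -0.78 (-1.29 with library size only, where 23 were lower and 0 higher), and between 15 and 19 were lower when 1 library was left out. HIBCH, a hydrolase of valine breakdown (chr7:130597234-130701452, 104 kb), was at 91.8, 74.9, and 56.3 CPM in control and 15.5, 15.6, and 15.4 CPM in TL3h. The TL3h libraries were almost equal and far below control (log2 fold change -2.26 ± 0.20 SE, q = 4.04e-05). PPARA, the nuclear receptor that drives fatty acid oxidation, was at 90.4, 83.2, and 82.7 CPM in control and 21.5, 15.1, and 21.6 CPM in TL3h (log2 fold change -2.14 ± 0.27 SE, q = 2.20e-04). IVD, which acts in leucine breakdown, fell from 134, 105, and 70.3 CPM to 31.9, 41.6, and 24.5 CPM (log2 fold change -1.66 ± 0.47 SE, q = 0.0158), a call lost without TL3h replicate 3 (q = 0.0559). The higher fatty acid oxidation count was 1 without TL3h replicate 3 or control replicate 2. The KEGG pathway of fatty acid degradation held 6 higher and 11 lower of 43 (median -0.35, -0.85 with library size only), a lower share near the background, and that of valine, leucine, and isoleucine degradation 3 higher and 23 lower of 51 (median -0.77, -1.28 with library size only). Among the exceptions was ACADVL (0.98 ± 0.18), which did not pass with library size only (q = 0.0564). The tricarboxylic acid cycle was divided, with 8 of 21 tested members higher and 4 lower (median 0.21, -0.29 with library size only, where 4 were higher and 10 lower). IDH3A, a subunit of isocitrate dehydrogenase, was at 32.3, 34.5, and 59.2 CPM in control and 243, 225, and 223 CPM in TL3h (log2 fold change 2.45 ± 0.26 SE, q = 9.23e-05), while citrate synthase CS fell from 313, 306, and 313 CPM to 239, 227, and 251 CPM (log2 fold change -0.38 ± 0.11 SE, q = 0.0139). Complex I genes (NDUF) were higher in 3 and lower in 1 of 29 (median -0.01), and in 0 and 18 with library size only (median -0.52), NDUFB2 turning from 0.48 to -0.03. The higher NDUF count was 1 without TL3h replicate 1, control replicate 1 or control replicate 2. The lower NDUF count was 0 without control replicate 2 and 3 without TL3h replicate 1 or control replicate 3. Subunits of complexes III, IV, and V were higher in 5 and lower in 1 of 17 (median 0.22, -0.28 with library size only, where 1 was higher and 4 lower), with ATP5G1 at 1.20 ± 0.13. Aldehyde dehydrogenases were higher in 0 and lower in 6 of 13 (median -0.51, -1.01 with library size only), ALDH5A1 falling from 24.6, 10.1, and 14.9 CPM to 5.19, 2.90, and 3.84 CPM (log2 fold change -2.05 ± 0.50 SE, q = 0.00728). Mitochondrial carriers (SLC25) were higher in 10 and lower in 13 of 39 (median -0.23, -0.73 with library size only, where 5 were higher and 22 lower), with SLC25A25 at 2.07 ± 0.23 and SLC25A43 at -2.30 ± 0.30. The lower SLC25 count was 7 without control replicate 2.

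Of the cholesterol synthesis list, 7 of 18 tested members were higher and 3 lower (median 0.74, 0.25 with library size only, where 3 were higher and 6 lower). The higher cholesterol count was 4 without TL3h replicate 3. The lower cholesterol count was 1 without control replicate 1. SQLE, squalene epoxidase, was at 10.5, 12.7, and 15.1 CPM in control and 52.3, 35.7, and 71.7 CPM in TL3h (log2 fold change 2.06 ± 0.53 SE, q = 0.00950), and LSS, which makes lanosterol, had a log2 fold change of -1.06 ± 0.26. Of the fatty acid synthesis list, 3 of 12 tested members were higher and 1 lower (median 0.06, -0.43 with library size only, where 1 was higher and 5 lower). The desaturase FADS1 was at 14.8, 21.5, and 37.6 CPM in control and 193, 133, and 149.7 CPM in TL3h (log2 fold change 2.69 ± 0.56 SE, q = 0.00330), and the elongase ELOVL6 had a log2 fold change of -1.09 ± 0.31, a call lost without control replicate 1 (q = 0.0638). The lower fatty acid synthesis count was 3 without TL3h replicate 3. Polyamine and nitric oxide genes were higher in 7 and lower in 1 of 13 (median 1.19, 0.69 with library size only, where 6 were higher and 4 lower). Both rate-limiting enzymes of polyamine synthesis rose, ODC1 from 56.8, 64.4, and 71.6 CPM to 335, 493, and 309.6 CPM (log2 fold change 2.56 ± 0.33 SE, q = 2.37e-04) and AMD1 from 31.6, 27.1, and 47.6 CPM to 210.1, 217, and 222 CPM (log2 fold change 2.61 ± 0.27 SE, q = 8.65e-05), as did the endothelial nitric oxide synthase NOS3 from 0.261, 1.10, and 2.11 CPM to 7.99, 13.4, and 10.6 CPM (log2 fold change 3.20 ± 0.77 SE, q = 0.00702).

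Of the prostaglandin and leukotriene list, 8 of 20 tested members were higher and 1 lower (median 0.68, 0.19 with library size only). PTGS2, the inducible cyclooxygenase, was at 1.19, 1.87, and 5.67 CPM in control and 356, 426, and 313 CPM in TL3h (log2 fold change 6.97 ± 0.93 SE, q = 2.81e-04). The prostacyclin receptor PTGIR rose from 0.617, 1.37, and 2.28 CPM to 31.9, 42.7, and 15.9 CPM (log2 fold change 4.40 ± 0.51 SE, q = 1.40e-04) and the prostaglandin E receptor PTGER3 by 3.52 ± 0.68. The synthase PTGES, at 74.4, 66.4, and 43.4 CPM in control and 50.7, 25.1, and 63.8 CPM in TL3h, did not pass (q = 0.438), and the phospholipase PLA2G4F, an epithelial gene, fell from 338, 290.3, and 269 CPM to 81.1, 37.5, and 65.6 CPM (log2 fold change -2.29 ± 0.52 SE, q = 0.00527). Of the retinoid list, 3 of 16 tested members were higher and 5 lower (median 0.56, 0.06 with library size only, where 1 was higher and 5 lower). The lower retinoid count was 1 without control replicate 1. The KEGG pathway of retinol metabolism held 3 higher and 14 lower of 47, with a median of -0.86 (-1.32 with library size only) that was opposite in sign to that of the list and the lowest median of the 289 KEGG pathways with at least 20 tested genes. The receptors moved apart, RARA rising from 14.97, 18.5, and 18.5 CPM to 47.6, 57.5, and 30.8 CPM (log2 fold change 1.39 ± 0.21 SE, q = 6.35e-04) and RARB falling from 40.8, 25.4, and 46.3 CPM to 6.03, 7.47, and 12.9 CPM (log2 fold change -2.09 ± 0.43 SE, q = 0.00302). RARB spans 436 kb and RARA 12.96 kb. Of the lysosome and autophagy list, 12 of 31 tested members were higher and 6 lower (median 0.43, -0.06 with library size only, where 3 were higher and 12 lower). The higher lysosome count was 7 without TL3h replicate 3, control replicate 1 or control replicate 2. TFE3, a factor that drives lysosomal genes, was at 43.9, 46.4, and 52.8 CPM in control and 140.0, 143, and 113 CPM in TL3h (log2 fold change 1.47 ± 0.14 SE, q = 5.70e-05), the autophagy receptor SQSTM1 was higher by 1.13 ± 0.22, and ATG14, which starts autophagosomes, fell from 30.1, 31.1, and 27.5 CPM to 11.4, 14.5, and 11.7 CPM (log2 fold change -1.24 ± 0.18 SE, q = 4.55e-04).

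Of the lists of epithelial genes, that of hemidesmosomes and migrating epithelium was mostly higher, and those of keratins and junctions mostly had no call. Which cells carried these transcripts was not tested, and the neutrophil and fibroblast marker sums were higher in the same libraries. Of 15 keratins tested, 3 were higher and 0 lower (median 0.17, -0.35 with library size only, where 2 were higher and 2 lower). KRT17, a keratin of wounded epithelium, was at 12.3, 17.7, and 21.6 CPM in control and 601, 198, and 532 CPM in TL3h (log2 fold change 4.69 ± 1.31 SE, q = 0.0146), a call lost without control replicate 1 (q = 0.0568). The higher keratin count was 1 without control replicate 1 or control replicate 2. KRT23 was higher by 2.88 ± 0.73 and KRT18 by 1.70 ± 0.53, the latter without a call when TL3h replicate 1 was left out (q = 0.111), and the conjunctival keratin KRT4, at 4352, 3190.3, and 1836 CPM in control and 2536, 752, and 2347 CPM in TL3h, did not pass (log2 fold change -0.74 ± 0.53 SE, q = 0.291). Of the list of hemidesmosomes and migrating epithelium, 10 of 16 tested members were higher and 1 lower (median 2.89, 2.40 with library size only, where 9 were higher and 3 lower). SERPINB2, an inhibitor of urokinase, was at 16.2, 13.3, and 35.5 CPM in control and 1063, 1169.6, and 1338 CPM in TL3h (log2 fold change 5.78 ± 0.84 SE, q = 4.62e-04). The urokinase receptor PLAUR was at 6.57, 5.15, and 19.1 CPM in control and 679, 314, and 450.1 CPM in TL3h (log2 fold change 5.55 ± 0.75 SE, q = 3.05e-04), and the fibronectin receptor subunit ITGA5 was at 20.7, 28.6, and 42.2 CPM in control and 176, 425, and 343 CPM in TL3h (log2 fold change 3.37 ± 0.68 SE, q = 0.00277). FERMT1 (kindlin-1), an integrin activator of epithelium, fell from 88.0, 91.8, and 43.2 CPM to 9.84, 15.1, and 24.1 CPM (log2 fold change -2.19 ± 0.43 SE, q = 0.00254). The lower hemidesmosome count was 3 without control replicate 3.

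Junction genes were near the background, with 5 of 29 tested members higher and 8 lower (median -0.26, -0.77 with library size only, where 2 were higher and 13 lower). The KEGG tight junction pathway held 45 higher and 27 lower of 146 (median 0.24, -0.27 with library size only). The higher junction count was 2 without TL3h replicate 3, control replicate 2 or control replicate 3. EVPL, envoplakin of the cornified envelope, was at 279.7, 207, and 119.5 CPM in control and 32.5, 15.6, and 18.3 CPM in TL3h (log2 fold change -3.19 ± 0.50 SE, q = 6.61e-04). GRHL2, a factor that maintains epithelial junctions, fell from 236, 211, and 103 CPM to 34.3, 15.02, and 48.7 CPM (log2 fold change -2.49 ± 0.45 SE, q = 0.00153) and GRHL3 had a log2 fold change of -2.42 ± 0.44. CLDN4, a claudin that seals epithelium, and CDH3, P-cadherin, went up, CLDN4 from 379.8, 379.7, and 282 CPM to 2546, 1651, and 2609 CPM (log2 fold change 2.71 ± 0.45 SE, q = 9.55e-04) and CDH3 from 41.3, 36.0, and 47.9 CPM to 275, 195, and 270.0 CPM (log2 fold change 2.56 ± 0.57 SE, q = 0.00467). Across the claudin family, 5 of 14 tested members were higher and 2 lower (median 1.04, 0.58 with library size only, where 3 were higher and 3 lower). CLDN12 was higher by 0.41 with TMM and was at -0.10 with library size only. The higher CLDN count was 3 without TL3h replicate 3 or control replicate 2. The epithelial marker sum was lower in TL3h than in control, and its part in these falls was not tested.

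Of the mucin and goblet cell list, 1 of 16 tested members were higher and 2 lower (median 0.12, -0.37 with library size only, where 0 were higher and 3 lower), and its 1 goblet marker tested, SPDEF, was at 8.66 to 14.7 CPM in control and 5.43 to 18.9 CPM in TL3h. MUC15 fell from 80.4, 90.7, and 28.5 CPM to 19.5, 9.997, and 14.4 CPM (log2 fold change -2.19 ± 0.44 SE, q = 0.00287). The higher mucin count was 0 without TL3d replicate 2, TL3h replicate 1, TL3h replicate 3, control replicate 1 or control replicate 2 and 2 without TL14d replicate 3, TL3d replicate 1, TL3h replicate 2 or control replicate 3. The lower mucin count was 1 without TL3h replicate 3 or control replicate 2. Of the water and ion transport list, 3 of 24 tested members were higher and 4 lower (median -0.11, -0.61 with library size only, where 1 was higher and 7 lower). The water channel AQP5 was at 1112, 806, and 399.9 CPM in control and 307, 83.8, and 252 CPM in TL3h (log2 fold change -1.85 ± 0.66 SE, q = 0.0419), a call lost without control replicate 1 (q = 0.131). AQP3 did not pass (-0.48 ± 0.56, q = 0.520). The bicarbonate cotransporter SLC4A7 rose from 48.6, 43.5, and 52.6 CPM to 183, 169.8, and 204 CPM (log2 fold change 1.94 ± 0.27 SE, q = 3.40e-04). The higher transport count was 1 without TL3h replicate 1 or control replicate 2. The lower transport count was 2 without TL3h replicate 2 or control replicate 1. Among the secreted antimicrobials, 6 of 13 tested members were higher and 2 lower (median 1.002, 0.48 with library size only). The members that rose are known from neutrophil granules and cytosol, such as PGLYRP1, from 0.641, 0.3499, and 3.69 CPM to 168, 130.2, and 53.9 CPM (log2 fold change 6.23 ± 1.06 SE, q = 0.00107), and S100A8, from 0.807, 0.975, and 25.8 CPM to 424, 942, and 362 CPM (log2 fold change 5.97 ± 1.70 SE, q = 0.0159). Control replicate 3 was the highest control library for both genes and lay below all TL3h libraries. PIGR, the epithelial carrier of IgA, had a log2 fold change of -1.26 ± 0.39, a call lost without control replicate 1 (q = 0.0725). The lower antimicrobial count was 0 without TL3h replicate 2 or control replicate 2.

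Genes of the plasminogen and coagulation system, which forms and dissolves clots, were called on the higher side. Of the list, 12 of 17 tested members were higher and 0 lower (median 3.20, or 2.58 with genes near 0 at their bound, and 2.74 with library size only, where 9 were higher). PLAT, tissue plasminogen activator, was at 10.4, 26.0, and 78.1 CPM in control and 2426, 1245, and 1993 CPM in TL3h (log2 fold change 5.63 ± 1.01 SE, q = 0.00144). THBD, thrombomodulin, an anticoagulant receptor of endothelium, was at 8.92, 16.1, and 16.7 CPM in control and 111, 251, and 80.7 CPM in TL3h (log2 fold change 3.41 ± 0.43 SE, q = 2.17e-04), and the inhibitor SERPINE2 was higher by 3.31 ± 0.67. Tissue factor F3, which starts clotting, was at 1862, 1712, and 1283 CPM in control and 4057, 1798, and 5106 CPM in TL3h. Its groups overlapped, and it did not pass with library size only (q = 0.211, against 0.0373 with TMM). Over the SERPIN family, 9 of 21 tested members were higher and 0 lower (median 1.46, or 1.22 with genes near 0 at their bound, and 1.01 with library size only).

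The hyaluronan synthases HAS1, HAS2, and HAS3 were each higher. HAS3 was at 0.712, 0.575, and 3.24 CPM in control and 158, 74.5, and 32.5 CPM in TL3h (log2 fold change 5.87 ± 1.10 SE, q = 0.00183), HAS2 was at 3.92, 4.42, and 7.50 CPM in control and 76.9, 103, and 63.4 CPM in TL3h (log2 fold change 3.94 ± 0.74 SE, q = 0.00182), and HAS1 was higher by 4.62 ± 0.60. The whole matrix list held 6 of 24 tested members higher and 1 lower (median 0.95, 0.50 with library size only). The hyaluronan receptor HMMR, which also acts in mitosis, fell from 4.98, 4.70, and 2.61 CPM to 0.576, 0.539, and 0.439 CPM (log2 fold change -2.98 ± 0.35 SE, q = 1.48e-04). Of the metalloproteases and inhibitors, 11 of 25 tested members were higher and 1 lower (median 0.90, 0.46 with library size only, where 7 were higher and 3 lower). The higher metalloprotease count was 7 without TL3h replicate 1 or control replicate 2. ADAMTS4, an aggrecanase that also cuts versican, was at 0.807, 2.92, and 3.74 CPM in control and 215, 465, and 147 CPM in TL3h (log2 fold change 6.79 ± 0.91 SE, q = 2.99e-04). The collagenase MMP1 was at 6.03, 7.52, and 19.4 CPM in control and 442, 316, and 355 CPM in TL3h (log2 fold change 5.08 ± 1.01 SE, q = 0.00256), and the inhibitor TIMP1 at 14.1, 30.3, and 71.0 CPM in control and 477, 797, and 486 CPM in TL3h (log2 fold change 3.93 ± 0.79 SE, q = 0.00276). MMP15, a membrane-bound protease, fell from 134, 134, and 51.3 CPM to 14.5, 3.98, and 9.66 CPM (log2 fold change -3.51 ± 0.49 SE, q = 3.80e-04). Of 18 ADAMTS genes, 3 were higher and 0 lower (median 0.39, or 0.46 with genes near 0 at their bound, and -0.05 with library size only, where 2 were higher and 2 lower).

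Collagen genes had a higher summed level in TL3h but hardly any calls. Of 39 collagen genes tested, 1 was higher and 0 lower (median 0.79, 0.34 with library size only, where 1 was higher and 3 lower), although the summed collagen level was 13497 to 73689.9 CPM in control and 101483 to 116055 CPM in TL3h and did not overlap. The control libraries differed widely among themselves. The higher collagen count was 2 without TL14d replicate 1. The 1 called gene was COL28A1, a collagen with von Willebrand factor type A domains, at 0.356, 0.3499, and 0.803 CPM in control and 30.02, 3.86, and 24.9 CPM in TL3h (log2 fold change 5.27 ± 0.82 SE, q = 6.52e-04).

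Of the adhesion molecules for leukocytes, 7 of 14 tested members were higher and 0 lower (median 1.57, 1.07 with library size only, where 6 were higher and 1 lower). On the vessel side, P-selectin SELP was at 0.688, 4.65, and 3.11 CPM in control and 30.6, 77.7, and 30.4 CPM in TL3h (log2 fold change 4.04 ± 0.89 SE, q = 0.00449) and ICAM1 at 67.4, 55.4, and 78.8 CPM in control and 357, 321, and 201 CPM in TL3h (log2 fold change 2.12 ± 0.40 SE, q = 0.00194), while E-selectin SELE (0.166, 2.25, and 0.0502 CPM in control and 1.81, 2.57, and 0.622 CPM in TL3h, q = 0.581) and VCAM1 (1.90, 5.90, and 0.777 CPM and 0.461, 0.954, and 0.622 CPM, q = 0.0787) did not pass. On the leukocyte side, the integrin subunits ITGB2 (4.22 ± 1.03) and ITGAL (3.55 ± 0.63) rose. Over all integrin symbols, 10 of 28 tested members were higher and 3 lower (median 0.70, 0.22 with library size only, where 7 were higher and 7 lower). The lower integrin count was 6 without control replicate 3.

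Sensors of microbial products moved in both directions. Of the Toll-like receptor and inflammasome list, 9 of 18 tested members were higher and 2 lower (median 0.85, 0.37 with library size only, where 7 were higher and 4 lower). TLR4, the lipopolysaccharide receptor, was at 4.32, 9.55, and 44.8 CPM in control and 271, 359, and 199 CPM in TL3h (log2 fold change 3.82 ± 0.88 SE, q = 0.00559), and its partner LY96 was higher by 3.08 ± 0.45. TLR2 fell from 106, 87.4, and 57.4 CPM to 24.3, 15.8, and 22.9 CPM (log2 fold change -1.99 ± 0.32 SE, q = 8.39e-04) and TLR3 had a log2 fold change of -1.68 ± 0.36. Of the complement list, 3 of 17 tested members were higher and 2 lower (median 1.07, 0.61 with library size only). The anaphylatoxin receptor C5AR1 was at 3.49, 6.22, and 28.9 CPM in control and 174, 186, and 113 CPM in TL3h (log2 fold change 3.62 ± 0.79 SE, q = 0.00410), the protective surface protein CD55 was higher by 1.64 ± 0.35, and C3, at 384, 531, and 828 CPM in control and 627, 1066, and 529 CPM in TL3h, did not pass (log2 fold change 0.35 ± 0.49 SE, q = 0.591). The lower complement count was 1 without TL3h replicate 3 or control replicate 2.

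With TMM and all libraries, interferon-stimulated genes were below the background in both directions, but on the lower side this did not hold under other settings. Of this list, 4 of 23 tested members were higher and 1 lower (median -0.31, -0.82 with library size only, where 1 was higher and 9 lower). The higher interferon count was 1 without TL3h replicate 1 or TL3h replicate 2. With library size only, the lower share was near the 38.2% of all genes. The lower interferon count was 7 without control replicate 3, where 3496 of all 15103 genes tested were lower. IFIT3 was at 48.03, 39.9, and 23.7 CPM in control and 129, 126, and 58.5 CPM in TL3h (log2 fold change 1.49 ± 0.34 SE, q = 0.00531), IFI44 fell from 58.3, 46.3, and 21.3 CPM to 16.4, 17.5, and 9.88 CPM (log2 fold change -1.52 ± 0.33 SE, q = 0.00434), and MX1, at 391, 303, and 197 CPM in control and 226, 291, and 181 CPM in TL3h, did not pass (log2 fold change -0.35 ± 0.29 SE, q = 0.354). IDO1, the tryptophan-degrading enzyme that interferon-gamma is known to induce, was among the largest rises of all genes, at 1.54, 3.17, and 15.5 CPM in control and 925, 1064, and 409 CPM in TL3h (log2 fold change 6.89 ± 1.47 SE, q = 0.00378).

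**Figure D3:**
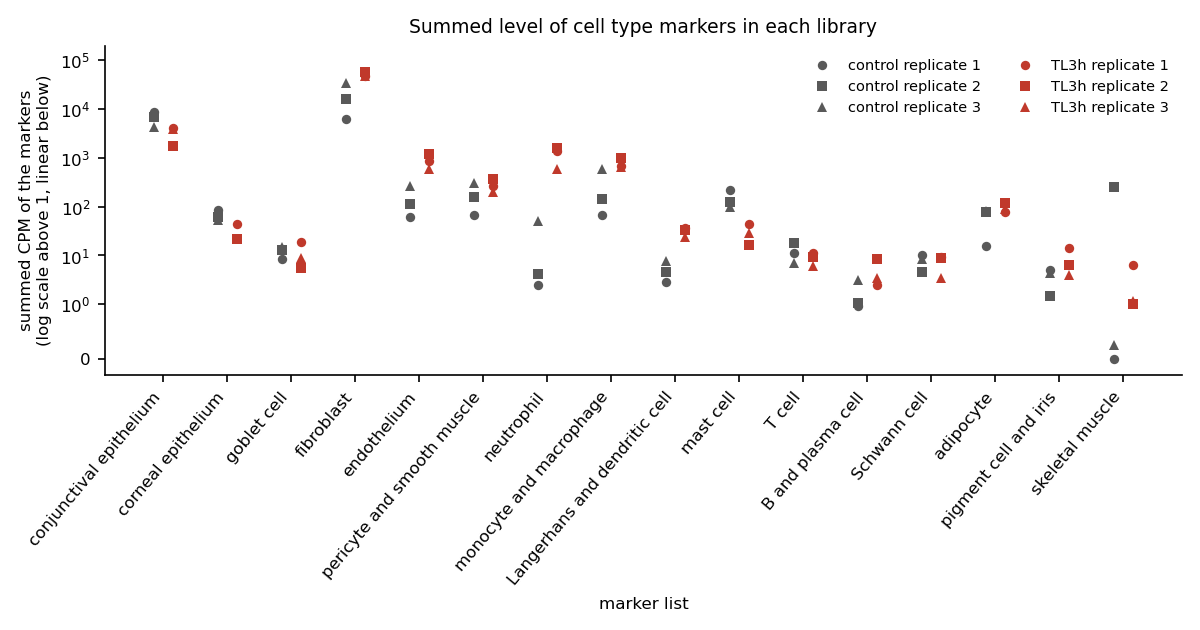
Summed level in CPM of the markers of 16 cell types in each control library (grey) and TL3h library (red), on an axis that is logarithmic above 1 CPM and linear below it. The neutrophil sum lies at 2.44 to 51.9 CPM in control and 594 to 1594 CPM in TL3h, the mast cell sum, nearly all of it KIT, at 99.5 to 216 CPM and 16.1 to 44.1 CPM (the other 3 mast cell markers tested were higher), and the skeletal muscle sum is high in control replicate 2 only (249 CPM).

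Cell type markers moved most for neutrophils. The 4 neutrophil markers tested were all higher (median 5.97, 5.53 with library size only), and MPO, a granule enzyme made in bone marrow precursors, was at or under the limit of a count of 0 in all 6 libraries. CXCR2, the receptor for CXC chemokines, was at 0.237, 0.200, and 6.42 CPM in control and 177, 235, and 82.6 CPM in TL3h (log2 fold change 6.17 ± 1.44 SE, q = 0.00602). The monocyte and macrophage markers CD14 and CD68 were higher and CSF1R, MRC1, and CD163 did not pass. CD14 was at 5.48, 8.25, and 33.1 CPM in control and 213, 256, and 117 CPM in TL3h (log2 fold change 3.64 ± 0.99 SE, q = 0.0126) and lost the threshold without control replicate 2 (q = 0.0514), and CSF1R was at 21.5, 52.6, and 173 CPM in control and 102, 134, and 76.6 CPM in TL3h. The higher macrophage count was 1 without control replicate 2 and 4 without control replicate 3. Of the endothelial markers, PECAM1, at 5.91, 26.0, and 135 CPM in control and 717, 972, and 459 CPM in TL3h (log2 fold change 3.68 ± 0.97 SE, q = 0.0109), and CDH5 (2.46 ± 0.87) were higher, and VWF and KDR did not pass. PECAM1 is also carried by neutrophils. CDH5 (q = 0.0401) lost the threshold without control replicate 2 (q = 0.121). The higher endothelial count was 1 without any 1 of most libraries. The lower conjunctival epithelium count was 2 without TL14d replicate 1, TL14d replicate 2 or control replicate 3.

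Mast cell markers moved in both directions. KIT, the stem cell factor receptor, which pigment cells also carry, fell from 215, 121, and 97.3 CPM to 34.9, 9.71, and 21.6 CPM (log2 fold change -2.71 ± 0.72 SE, q = 0.0116). HDC, FCER1A, and MS4A2 were higher at low levels, HDC from 0.0949, 0.09996, and 0.1003 CPM to 0.653, 1.08, and 0.549 CPM (log2 fold change 2.90 ± 0.77 SE, q = 0.0117). The higher mast cell count was 1 without TL3h replicate 1, TL3h replicate 3, control replicate 1 or control replicate 2. Of 4 Langerhans and dendritic cell markers tested, CCR7 and CD83 were higher, CD83 by 3.48 ± 0.68, and 2 did not pass. The summed level of all 4 was 2.80 to 7.85 CPM in control and 23.9 to 36.3 CPM in TL3h. Of 4 T cell markers, 0 were higher and 1 lower, of 3 B cell markers 1 was higher, and their sums stayed under 20 CPM in all 6 libraries. Fibroblast (4 tested), pericyte and smooth muscle (3), Schwann cell (3), pigment cell (3), corneal epithelium (2), adipocyte (1), and goblet cell (1) markers gave 0 calls in either direction. The lower T cell count was 0 without any 1 of most libraries. The higher dendritic count was 1 without control replicate 1 or control replicate 2. The corneal epithelium sum was 54.1 to 84.8 CPM in control and 21.8 to 44.5 CPM in TL3h. ACTA1, the only skeletal muscle marker tested, was at 0, 91.5, and 0.251 CPM in control and 6.42, 0.996, and 1.06 CPM in TL3h, so control replicate 2 held muscle transcripts that the other control libraries nearly lacked. The 2 hemoglobin genes listed as red cell markers were not analysed here.

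**Figure D4:**
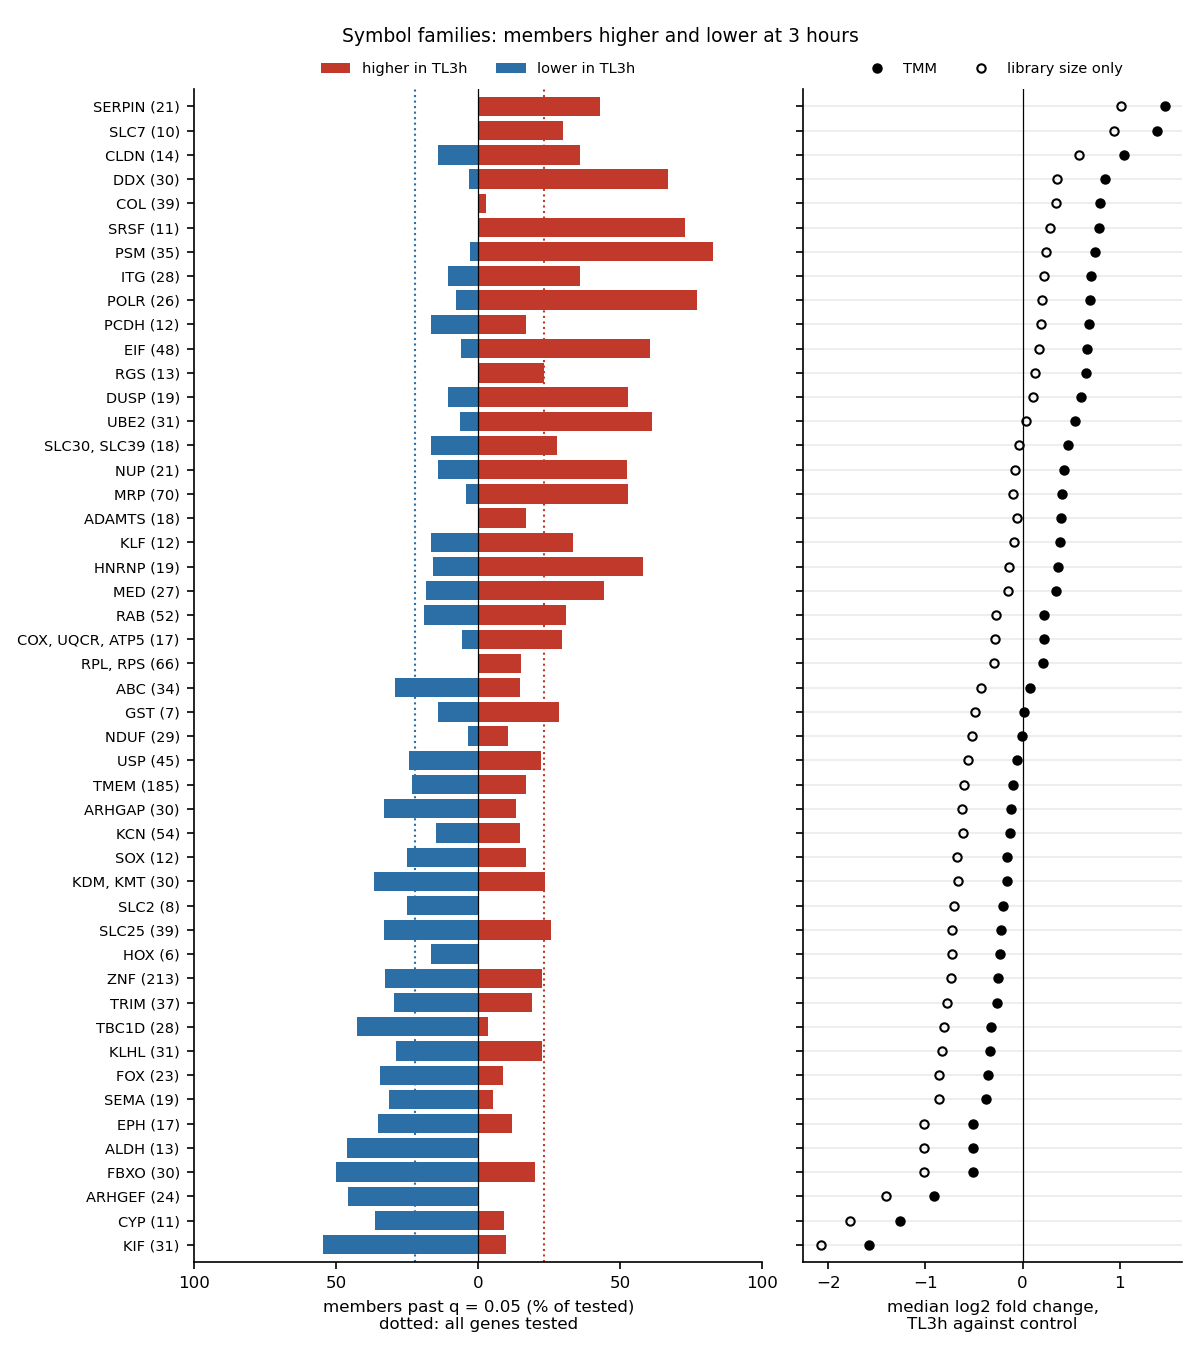
Left, percent of the tested members of each gene symbol family that were higher (red) or lower (blue) in TL3h at q = 0.05, with dotted lines at the shares over all genes tested; right, median log2 fold change with TMM (filled) and library size only (open). Families are ordered by their median, from SERPIN (1.46) to KIF (-1.58), and the number tested is in brackets.

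Kinesins had the lowest median of the families examined. Of the KIF genes, 3 of 31 tested members were higher and 17 lower (median -1.58, -2.08 with library size only), and each fit without 1 library gave 17 or 18 lower. The lower ones named here are motors of mitosis. KIF2C, which removes tubulin at kinetochores, was at 5.24, 6.12, and 2.63 CPM in control and 0.423, 0.332, and 0.841 CPM in TL3h (log2 fold change -3.12 ± 0.41 SE, q = 2.73e-04). KIF23, which is needed for cytokinesis, was at 8.73, 12.6, and 6.55 CPM in control and 1.42, 1.16, and 1.13 CPM in TL3h (log2 fold change -2.90 ± 0.31 SE, q = 1.02e-04). KIF18B fell from 3.92, 4.75, and 2.71 CPM to 0.730, 0.373, and 0.402 CPM (log2 fold change -2.91 ± 0.33 SE, q = 1.25e-04). The transport motors KIF21B (2.03 ± 0.27) and KIF5B (1.10 ± 0.28) rose, KIF5B without a call under library size only (q = 0.0949). Of the FOX family, 2 of 23 tested members were higher and 8 lower (median -0.36, -0.86 with library size only, where 1 was higher and 13 lower), with FOXM1, the factor of mitotic genes, at a log2 fold change of -2.74 ± 0.23 and FOXP2 falling from 77.8, 84.5, and 25.6 CPM to 6.15, 1.74, and 6.26 CPM (log2 fold change -3.73 ± 0.63 SE, q = 0.00105). The lower FOX count was 5 without control replicate 1.

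Among the regulators of small GTPases, the ARHGEF and TBC1D families leaned to the lower side as well. Of the exchange factors named ARHGEF, 0 of 24 tested members were higher and 11 lower (median -0.92, -1.41 with library size only, where 0 were higher and 18 lower), and ARHGEF28 was at 59.9, 55.6, and 25.1 CPM in control and 6.92, 2.12, and 5.63 CPM in TL3h (log2 fold change -3.26 ± 0.44 SE, q = 3.16e-04). ARHGEF19 fell from 22.9, 21.5, and 8.90 CPM to 3.04, 2.61, and 2.16 CPM (log2 fold change -2.77 ± 0.44 SE, q = 7.64e-04). Of the GTPase activators named ARHGAP, 4 of 30 tested members were higher and 10 lower (median -0.12, -0.63 with library size only, where 2 were higher and 11 lower, near the 38.2% of all genes). The higher ones with TMM included the leukocyte genes ARHGAP30 (2.78 ± 0.39) and ARHGAP15 (1.76 ± 0.52, lost without TL3h replicate 2, q = 0.0706). The higher ARHGAP count was 2 without TL3h replicate 2 or control replicate 1 and 7 without control replicate 3. Of the RAB GTPase activators (TBC1D), 1 of 28 tested members were higher and 12 lower (median -0.32, -0.81 with library size only, where 0 were higher and 18 lower). TBC1D4, which holds glucose transporters inside the cell until insulin acts, was at 42.5, 43.5, and 31.3 CPM in control and 5.65, 4.604, and 6.07 CPM in TL3h (log2 fold change -2.84 ± 0.21 SE, q = 2.77e-05). RAB genes themselves were higher in 16 and lower in 10 of 52 (median 0.22, -0.28 with library size only, where 6 were higher and 19 lower), and RGS genes, which end G protein signalling, in 3 and 0 of 13 (median 0.65, 0.13 with library size only, where 3 were higher and 1 lower), with RGS2 at 5.32, 5.55, and 71.9 CPM in control and 868, 984, and 474 CPM in TL3h (log2 fold change 4.81 ± 1.16 SE, q = 0.00712). The higher RAB count was 10 without TL3h replicate 1. The higher TBC1D count was 0 without TL3h replicate 1, TL3h replicate 2, TL3h replicate 3, control replicate 2 or control replicate 3.

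Zinc finger genes (ZNF) were the largest family, and 48 of 213 tested members were higher and 70 lower (median -0.25, -0.74 with library size only, where 17 were higher and 115 lower). ZNF618, which binds hydroxymethylated DNA, was at 38.9, 40.9, and 24.8 CPM in control and 3.00, 2.16, and 2.19 CPM in TL3h. Its TL3h libraries were more than 8 times below its lowest control library (log2 fold change -3.83 ± 0.23 SE, q = 1.81e-05). ZNF281 went the other way, from 11.7, 12.9, and 18.8 CPM to 131, 163, and 103 CPM (log2 fold change 3.19 ± 0.37 SE, q = 1.34e-04), and ZNF593 was higher by 2.46 ± 0.24. Histone lysine demethylases and methyltransferases (KDM, KMT, and SETD symbols) were higher in 7 and lower in 11 of 30 (median -0.16, -0.66 with library size only, where 2 were higher and 20 lower). The lower KDM and KMT count was 7 without control replicate 1 or control replicate 2. KDM6B, a histone demethylase that macrophages are known to induce, was at 61.4, 61.7, and 76.8 CPM in control and 382, 434, and 261 CPM in TL3h (log2 fold change 2.43 ± 0.20 SE, q = 3.67e-05). Of the KLF factors, 4 of 12 tested members were higher and 2 lower (median 0.38, -0.09 with library size only, where 2 were higher and 4 lower), KLF6 rising from 176, 143, and 199 CPM to 969, 793, and 730.0 CPM (log2 fold change 2.27 ± 0.24 SE, q = 8.87e-05). The higher KLF count was 2 without TL3h replicate 2, TL3h replicate 3, control replicate 1 or control replicate 2. Of the SOX factors, 2 of 12 tested members were higher and 3 lower (median -0.16, -0.68 with library size only, where 2 were higher and 5 lower). The endothelial factor SOX17 rose from 0.119, 0.675, and 0.426 CPM to 5.19, 4.48, and 3.33 CPM (log2 fold change 3.404 ± 0.76 SE, q = 0.00491), and SOX6, whose gene spans 647 kb, fell from 21.1, 15.7, and 11.9 CPM to 1.42, 0.622, and 1.35 CPM (log2 fold change -3.84 ± 0.99 SE, q = 0.00989). Of 6 HOX genes tested, 0 were higher and 1 lower (median -0.24, -0.72 with library size only, where 0 were higher and 2 lower). The lower HOX count was 0 without TL3h replicate 2, TL3h replicate 3, control replicate 1 or control replicate 3 and 2 without TL14d replicate 1 or TL14d replicate 2.

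Ubiquitin ligase parts were mixed. F-box proteins (FBXO) were higher in 6 and lower in 15 of 30 (median -0.52, -1.01 with library size only, where 4 were higher and 22 lower), and FBXO32 (atrogin-1) was at 153, 163, and 140.4 CPM in control and 32.3, 37.0, and 49.3 CPM in TL3h (log2 fold change -1.94 ± 0.25 SE, q = 2.38e-04). KLHL adaptors were higher in 7 and lower in 9 of 31 (median -0.33, -0.83 with library size only, where 3 were higher and 17 lower), TRIM ligases in 7 and 11 of 37 (median -0.27, -0.78 with library size only, where 2 were higher and 20 lower), and USP deubiquitinases in 10 and 11 of 45 (median -0.06, -0.56 with library size only, where 5 were higher and 24 lower). The higher KLHL count was 4 without TL3h replicate 1 or control replicate 2. The lower USP count was 7 without control replicate 2. USP36, a nucleolar deubiquitinase that ribosome synthesis needs, was at 38.3, 36.3, and 55.9 CPM in control and 180.2, 149, and 151 CPM in TL3h (log2 fold change 1.88 ± 0.17 SE, q = 4.80e-05).

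Among guidance receptors and their ligands, semaphorins (SEMA) were called with 1 higher and 6 lower of 19 (median -0.38, -0.86 with library size only, where 7 were lower, near the 38.2% of all genes) and ephrins and EPH receptors with 2 higher and 6 lower of 17 (median -0.51, -1.01 with library size only). The higher SEMA count was 0 without TL3h replicate 1, TL3h replicate 3, control replicate 1 or control replicate 2 and 3 without TL14d replicate 1. EPHA2 went up, at 65.1, 46.8, and 38.3 CPM in control and 494, 253, and 462 CPM in TL3h (log2 fold change 3.01 ± 0.50 SE, q = 9.70e-04). Among transporters, ABC genes were higher in 5 and lower in 10 of 34 (median 0.07, -0.42 with library size only). Those that rose included ABCE1, a factor that recycles ribosomes and transports nothing, from 71.9, 75.4, and 100.2 CPM to 285, 312, and 338 CPM (log2 fold change 1.92 ± 0.22 SE, q = 1.32e-04), and ABCF2 (1.74 ± 0.20). The higher ABC count was 8 without control replicate 3. The lower ABC count was 6 without control replicate 1 or control replicate 2. Zinc transporters (SLC30 and SLC39) were higher in 5 and lower in 3 of 18 (median 0.46, -0.04 with library size only, where 2 were higher and 6 lower), with SLC39A1 at 1.48 ± 0.19. The higher zinc transporter count was 3 without control replicate 2. Potassium channel genes (KCN) were higher in 8 and lower in 8 of 54 (median -0.13, or -0.07 with genes near 0 at their bound, and -0.62 with library size only, where 7 were higher and 12 lower), KCNK1 rising from 6.26, 6.30, and 12.6 CPM to 99.8, 46.8, and 87.9 CPM (log2 fold change 3.22 ± 0.64 SE, q = 0.00252). Cytochromes P450 (CYP) were higher in 1 and lower in 4 of 11 (median -1.26, -1.77 with library size only, where 1 was higher and 7 lower). The lower CYP count was 0 without TL3h replicate 2, TL3h replicate 3 or control replicate 1. Glutathione transferases (GST) were higher in 2 and lower in 1 of 7 (median 0.01, -0.49 with library size only, where 0 were higher and 2 lower), protocadherins (PCDH) in 2 and 2 of 12 (median 0.69, 0.19 with library size only, where 1 was higher and 2 lower), and transmembrane proteins named TMEM in 31 and 43 of 185 (median -0.10, -0.61 with library size only, where 16 were higher and 79 lower). The higher GST count was 1 without any 1 of most libraries. The lower GST count was 0 without control replicate 1 or control replicate 2. The higher PCDH count was 0 without TL3h replicate 2, control replicate 1 or control replicate 2. The lower PCDH count was 0 without control replicate 2. The lower TMEM count was 24 without control replicate 2. SLC7 transporters had a median of 1.38 (0.94), SLC2 transporters one of -0.21 (-0.71), and SRSF proteins one of 0.78 (0.28), with the library size only value in brackets.

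Beyond the lists, genes with large changes outside the study's gene lists included chemokine and leukocyte genes. CCL7, a monocyte chemokine (chr19:23731547-23733738), was at 0.285, 0.475, and 0.226 CPM in control and 48.2, 119, and 123 CPM in TL3h (log2 fold change 8.19 ± 0.77 SE, q = 5.53e-05). SLC11A1 (NRAMP1), the metal transporter of phagosomes, was at 0.308, 0.900, and 1.48 CPM in control and 95.3, 202, and 44.1 CPM in TL3h (log2 fold change 6.98 ± 1.36 SE, q = 0.00232), and CCRL2, a decoy chemokine receptor of neutrophils and macrophages, at 0.356, 0.375, and 3.31 CPM in control and 221, 170.0, and 76.2 CPM in TL3h (log2 fold change 6.85 ± 1.20 SE, q = 0.00124). An annotated keratin-associated protein 3-2 gene, LOC100358979, was at the limit of a count of 0 in control and at 5.84, 12.2, and 2.96 CPM in TL3h, at least 94.7-fold higher (q = 0.00248). It belongs to a multigene family, and 75% of its count values were fractions, so reads may be shared with its relatives. DDX43, a helicase known from testis and tumors, went from the limit of a count of 0 to 4.53, 6.01, and 0.622 CPM, at least 50.5-fold higher (q = 0.00184). Among the large falls, NYNRIN, a gene of retroviral origin, was at 44.4, 45.2, and 20.7 CPM in control and 2.34, 2.90, and 2.01 CPM in TL3h (log2 fold change -3.92 ± 0.41 SE, q = 8.69e-05), ANO2, a calcium-activated chloride channel, at 7.74, 5.15, and 3.26 CPM in control and 0.461, 0.207, and 0.439 CPM in TL3h (log2 fold change -3.85 ± 0.60 SE, q = 6.75e-04), and PADI3, which citrullinates proteins of differentiated epithelium, at 10.6, 8.15, and 1.88 CPM in control and 0.576, 0.207, and 0.512 CPM in TL3h (log2 fold change -3.97 ± 0.98 SE, q = 0.00815).

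Long genes were more often lower and less often higher than short ones. Length here is the genomic span, that is, the distance from the start of the gene to its end with introns included. Of 2617 genes of under 5 kb, 23.9% were higher and 14.3% lower. Of 932 genes of 200 kb or more, 3.97% were higher and 40.1% lower, with a median log2 fold change of -0.75 (-1.23 with library size only and -0.68 without control replicate 3). With library size only in brackets, the median was 0.19 (-0.31) under 5 kb, 0.14 (-0.35) at 5 to 10 kb, and 0.17 (-0.33) at 10 to 25 kb, without a steady fall. Beyond that, it fell to 0.06 (-0.44) at 25 to 50 kb, -0.08 (-0.57) at 50 to 100 kb, and -0.32 (-0.83) at 100 to 200 kb. The median was thus below 0 at every span with library size only. The median span was 17.3 kb for higher genes, 37.8 kb for lower genes, and 20.8 kb for genes without a call, and 10.5 kb for the genes that rose at least 10-fold. Of 2323 genes of 100 kb or more, 200 were higher and 835 lower, and of 7807 genes of under 25 kb, 2101 were higher and 1302 lower.

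The relation with span was present at every expression level and transcript length examined. In the genes of the lowest control levels, the median was 0.10 under 25 kb and -0.41 at 100 kb or more, at middle levels 0.15 and -0.56, and at the highest levels 0.26 and -0.45. Among the genes with the shortest transcripts, 13.5% of 4033 genes of under 25 kb were lower, against 45.4% of 152 genes of 100 kb or more. Over the tested genes, which do not vary independently, the Spearman correlation of span with the log2 fold change was -0.17, that of transcript length -0.13, and that of control level 0.01. At the later times of the series, which share the control libraries, the median of the genes of 200 kb or more was -0.33 (TL3d) and -0.09 (TL14d). The lists, families, and genes that follow are examples, and no measure of median span against median log2 fold change over all lists was computed. The brackets give the median span, the median with TMM, and the median with library size only. Of families with long genes, KIF (61.6 kb, -1.58, -2.08), ARHGEF (56.1 kb, -0.92, -1.41), TBC1D (74.6 kb, -0.32, -0.81), and ARHGAP (90.9 kb, -0.12, -0.63) had medians below 0. Collagens (COL, 126 kb, 0.79, 0.34) and integrins (ITG, 66.8 kb, 0.70, 0.22) had medians above 0. ADAMTS (103 kb, 0.39, -0.05) and ABC genes (68.6 kb, 0.07, -0.42) turned from above 0 to below it with library size only. Of lists with short genes, ribosome biogenesis (14.0 kb, 2.11, 1.61) and immediate early factors (5.03 kb, 2.56, 2.06) had high medians. HOX genes (3.98 kb, -0.24, -0.72), SOX genes (4.78 kb, -0.16, -0.68), and ribosomal proteins (3.41 kb, 0.21, -0.30) had medians nearer 0. Among single genes, PDE4B (554 kb) rose and the short genes ARHGEF39 (3.29 kb, from 2.02, 2.87, and 1.30 CPM to 0.307, 0.166, and 0.183 CPM) and EVPL (16.5 kb) fell. The part of span in the results on any gene list was not tested.

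**Figure D5:**
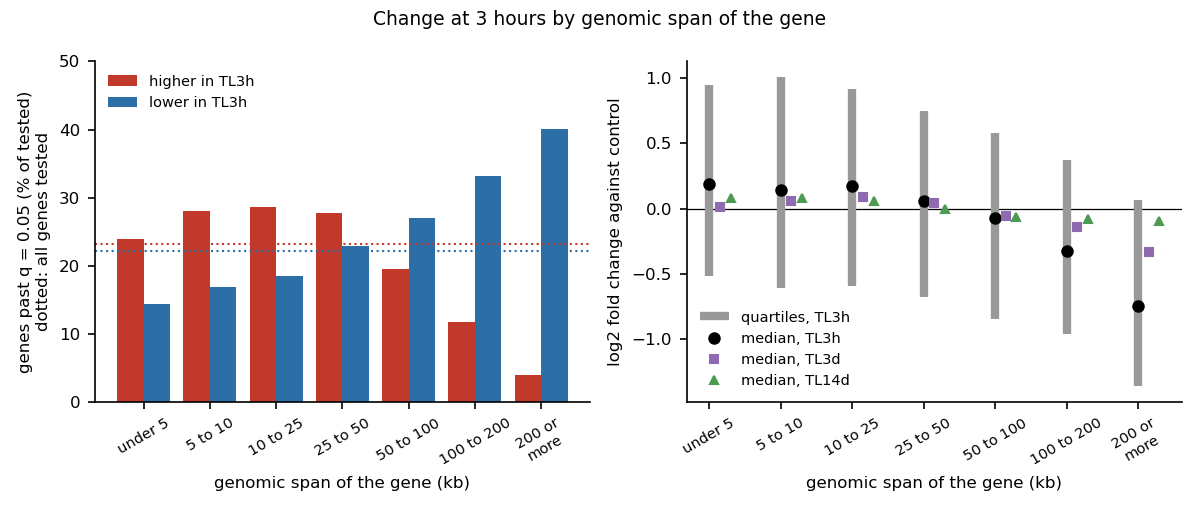
Left, percent of tested genes that were higher (red) or lower (blue) in TL3h at q = 0.05 by genomic span in kb, with dotted lines at the shares over all genes; right, median log2 fold change against control by span for TL3h (black, with quartiles in grey), TL3d (purple), and TL14d (green), which share the control libraries. The share of higher genes falls from 28.7% at 10 to 25 kb to 3.97% at 200 kb or more, and the share of lower genes rises from 14.3% to 40.1%.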

How the data were processed

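Whole conjunctiva was used for bulk RNA sequencing with a stranded messenger RNA kit and 150 bp paired-end reads. The authors mapped reads to OryCun2.0 with STAR (2.6.0c per the submitters' processing notes) and deposited estimated counts per gene, made with GeneData Profiler Genome, beside FPKM values per gene, which were not used here. How reads with several placements were shared, and whether strand was used, is not given in the sources used here, and 23.4% of the deposited estimated counts were fractions. Genes, chromosomes, and positions are those of the authors' table, where unplaced sequence is joined.

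Estimated counts were rounded to whole numbers. Genes were kept with the filterByExpr function (minimum count 10, minimum total 15), and all 12 libraries of 4 groups were fitted together with the edgeR quasi-likelihood test (edgeR 4.0.16 in R 4.3.3, TMM factors, prior count 0.125), which shares 1 estimate of the spread. TL3h minus control was tested over 14835 genes with Benjamini-Hochberg adjustment. The standard error was the log2 fold change divided by the square root of its F statistic. With 3 libraries against 3, an exact two-sided permutation test of 1 gene cannot go below 0.10, so no such test is given. On simulated counts for this comparison (14835 genes, 200 changed), 114 changed genes were recovered, 82 of the 100 with changes of at least 8-fold, with 6 false calls.

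The gene lists (48 topic lists, 17 cell marker lists) and 48 symbol families were chosen with earlier results of these data known, and so was the comparison itself. Genes named in the text are the key genes of each list, up to 3 members per list and direction with the largest called change, a level of at least 1 CPM, and no overlap between groups, and the 10 largest rises and falls over all genes at 5 CPM or more, in each case outside the study's own gene lists. Marker genes of the cell types, and EGFR, NQO1, and SLC2A1, are named for their place in a list. The 48 topic lists hold no gene that the study itself lists, so genes with very large changes such as IL6, KRT16, and MMP10 are not in their counts, whereas the symbol families hold such genes. A few other genes are not reported here by name, but stay in the fit and in any list that holds them. The split by genomic span was chosen after the data were seen. Alternatives were DESeq2 1.42.0, its size factors, library size only, no filter, the 6 libraries alone, a replicate block, and each library left out.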

Additional observations from a re-analysis of the deposited data

How the results depend on the processing

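The counts of calls kept within 1.5 times of 6733 under DESeq2 size factors (6716), the DESeq2 test (7534), no filter on low counts (6507), and the 6 libraries alone (6488). With library size only, 1889 genes were higher and 5674 lower. With TMM and a fold change of at least 2, 4270 genes were called, 2113 higher and 2157 lower. When 1 of the 12 libraries was left out, 5280 to 7271 genes were called, 2702 to 3696 higher and 2559 to 3575 lower, the lowest without control replicate 1 or 2. With library size only, the log2 fold changes of CLDN12 (-0.10) and NDUFB2 (-0.0262) reversed, each having moved by about the shift that this scaling gave the median of all genes (-0.50). Of 454 named genes past the threshold, 107 lost it under at least 1 setting, and of 41 named genes not past it, 18 passed under at least 1 setting. The deviations of libraries that share a replicate number had correlations across genes of 0.30, -0.15, and -0.15. Libraries of unlike number ranged from -0.41 to 0.43, so these values cannot decide whether the numbers are pairs. The labels tie no library to an animal, and the numbers were not taken as pairs. A replicate block gave 6946 calls, 3644 higher and 3302 lower. Genes at the limit of a count of 0 carry no more than a bound. The planned search of promoters for motifs was not run, because no promoter sequence was used here.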

Other observations

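The KEGG pathway names in the deposited table gave a description beside the lists above, over 289 pathways with at least 20 tested genes. Pathways share genes, and no test of a pathway was made. Of the genes of homologous recombination, 4 of 33 were higher and 18 lower (median log2 fold change -0.78, -1.29 with library size only). DNA replication held 5 higher and 17 lower of 33 (median -0.67, -1.18 with library size only), and the Fanconi anemia pathway, which repairs crosslinks of the kind that mitomycin C makes, 6 higher and 18 lower of 49 (median -0.38, -0.89 with library size only). Nicotinate and nicotinamide metabolism held 4 higher and 11 lower of 31 (median -0.68, -1.19 with library size only). Retinol metabolism had the lowest median (-0.86), with 3 higher and 14 lower of 47. On the higher side, protein processing in the endoplasmic reticulum held 76 higher and 12 lower of 158 (median 0.56, 0.06 with library size only), and the IL-17 signaling pathway 39 higher and 9 lower of 76 (median 0.72, 0.23 with library size only).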
